A study of Mus musculus with 3 samples.

Results

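The comparison described here set 5 wells named bC8FAE against 4 wells named MEF on 1 plate of a chemical screen in mouse embryonic fibroblasts. These 9 wells were chosen by their column names among the 274 columns of the count table. Wells named bC8FAE_BI or bC8FAE_MSC were not taken. Every well held wild-type mouse embryonic fibroblasts (MEF), primary connective tissue cells grown from embryos, and the plate was treated for 4 days. The plate's label names a CFAE medium, with the same number as in bC8FAE written after it, plus compounds given by a supplier's catalogue number. That label does not say which wells held a compound. The bC8FAE wells were taken, from their name, as this screening medium without a compound. The letters and the number in the medium names carry no explanation in the labels, and the MEF wells' medium is not named separately. The words medium and media below stand for the well names. Whether the MEF wells differed in more than medium is not in the labels. Total RNA was measured with DRUG-seq2, in which each well's RNA is barcoded during reverse transcription and the wells of a plate are pooled into 1 library. The labels do not say whether wells of 1 name were separate cultures, so p-values measure the spread between wells, which may be technical. Another medium on the same plate, bCFAE with 3 wells, is used only to show where bC8FAE wells differed from it.

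Embryonic fibroblasts make the collagen, elastin and proteoglycan matrix of connective tissue, and in culture they build actin stress fibres with smooth muscle proteins under the control of serum response factor and TGF-beta. Reprogramming media replace this programme through small molecules and growth factors that act on pathways such as Wnt, in which beta-catenin joins TCF and LEF factors at target genes and the targets include the pathway's own inhibitors. The series is about chemical barriers to such cell fate change, and its title names the kinase Cdk8, which pairs with cyclin C in a module of the Mediator complex.

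The 9 wells separated by well name before any gene was tested. Total counts were 505914, 460395, 395270, 119295 and 390895 in bC8FAE wells 1 to 5, against 447141, 351818, 138747 and 278827 in MEF wells 1 to 4. Well 4 of bC8FAE and well 3 of MEF had the lowest totals, are called the low wells. Most gene lists, and most genes called that are given with values, are given with and without them. The bounds of Cd83, Cbfa2t3, Fam101a, Grp and Calca are given with all wells only. For a gene that was not called, the value without them is given only where it was then called. Of the genes named as called against MEF, Col6a3, Dkk3, Grem1, Inhba and Itgb1 were not called without them. The first principal component of log2 CPM (counts of a gene per 1000000 counts of its well) held 52.1% of the variance, with every bC8FAE well on one side and every MEF well on the other. The second component held 16.8%, and both low wells lay apart from the rest on it. Mitochondrial genes took 1.95% of counts in bC8FAE well 4 and 1.43% in MEF well 3, against 0.653% to 1.06% in the other 7 wells. A well named nocell held 25308 counts, which is 21.2% of the total of bC8FAE well 4 and 18.2% of the total of MEF well 3. The other nocell well held 4280 counts. Where that RNA came from was not tested. Total counts, genes with a count and the shares of mitochondrial, ribosomal protein and top 10 genes were compared between the media. In all 9 wells, an exact two-sided permutation test over 126 splits found no difference beyond their spread (adjusted p = 0.794 to 0.825). Without the low wells, the mitochondrial share was 0.939 ± 0.0887% in bC8FAE and 0.705 ± 0.0602% in MEF wells, without overlap. The top 10 share was then 11.7 ± 0.616% and 10.4 ± 0.317%, also without overlap. Both had an exact permutation p of 0.0571, the smallest that 4 against 3 wells can give, and an adjusted p of 0.143. The other measures had an adjusted p of 0.381 to 0.514. In wells of bulk RNA, fewer cells of a type and less RNA per cell cannot be told apart.

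**Figure D1:**
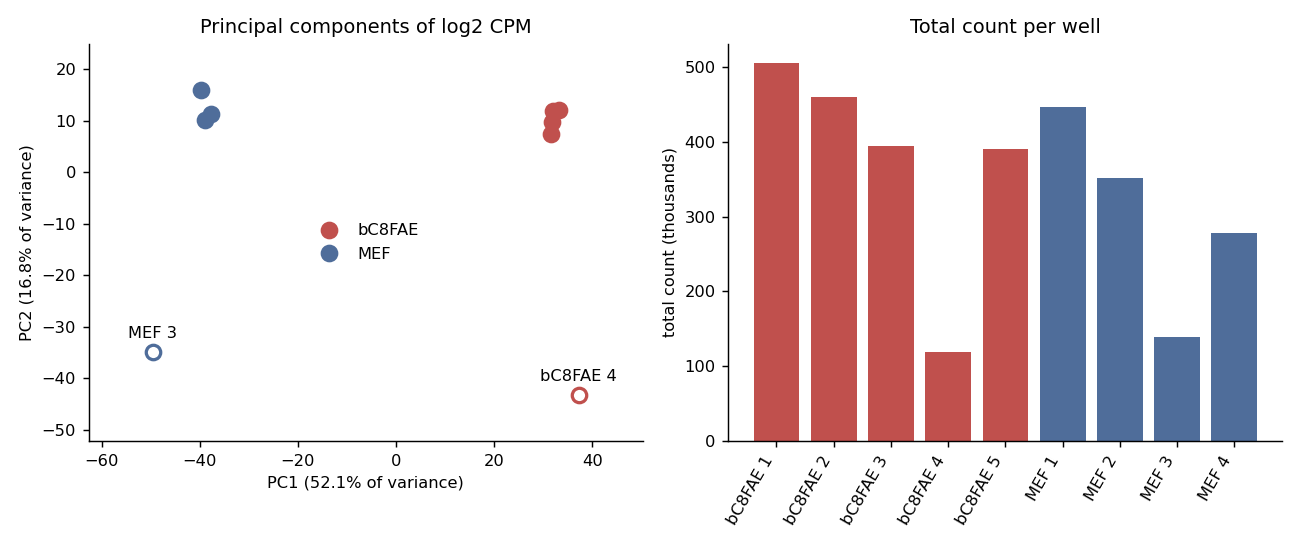
The left panel plots the first and second principal components of log2 CPM for the 5 bC8FAE and 4 MEF wells, and the right panel plots the total count of each well on an axis in units of 1000 counts. The bC8FAE and MEF wells lie on opposite sides of the first component (52.1% of variance), while bC8FAE well 4 (119295 counts) and MEF well 3 (138747 counts) lie apart on the second (16.8%).

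Across the transcriptome, 2241 of 6985 genes tested differed between bC8FAE and MEF wells at an edgeR quasi-likelihood adjusted p under 0.05, which is 32.1%. Of these, 1061 (15.2%) were higher and 1180 (16.9%) lower in bC8FAE wells. Without the low wells 2203 of 6847 genes tested were called (32.2%), 1046 higher and 1157 lower, and 2026 genes were called in both fits in the same direction, none in opposite directions. The called genes had a median absolute log2 fold change of 1.07, and 1208 of them (17.3% of genes tested) changed at least 2-fold, 516 upward (7.39%) and 692 downward (9.91%). In 1490 genes (21.3%) the wells of the 2 media did not overlap in CPM. Means are given ± SD over the 5 bC8FAE and 4 MEF wells and log2 fold changes ± SE, and a gene past the threshold is said to be called, to rise or to fall. The median log2 fold change over all genes tested was 0.015.

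Markers of fibroblasts were present in both media. All 13 of the fibroblast markers passed the filter on low counts, and their summed level was 6275 to 8173 CPM over the bC8FAE wells and 9468 to 11821 CPM over the MEF wells. The chains of fibrillar collagen, decorin, lumican and S100a4 were among the 9 that fell, 3 rose, and Prrx1, a homeobox factor of limb and craniofacial mesenchyme, was not called. Without the low wells 3 rose and 9 fell among 13 as well. Prrx1 had 267, 254, 309, 519.7 and 246 CPM in bC8FAE wells 1 to 5, against 306, 262, 389 and 298 CPM in MEF wells 1 to 4, and the wells overlapped. The 3 that rose were Thy1, a surface glycoprotein, Vim, the intermediate filament vimentin, and Twist1, a mesenchymal transcription factor. Twist1 had 198, 115, 121, 209.6 and 235 CPM in bC8FAE wells 1 to 5, against 71.6, 54.0, 21.6 and 39.5 CPM in MEF wells 1 to 4. Every bC8FAE well lay above every MEF well, with a log2 fold change of 1.62 ± 0.22 (edgeR adjusted p = 1.48e-08), and 1.48 ± 0.21 without the low wells. Thy1 had 2036, 1788, 1968, 2791 and 3024 CPM in bC8FAE wells 1 to 5, against 1328, 1265, 1643 and 1298 CPM in MEF wells 1 to 4. Thy1 lay above the MEF wells in all 5 bC8FAE wells, with a log2 fold change of 0.67 ± 0.14 (edgeR adjusted p = 0.000173), and 0.70 ± 0.13 without the low wells. Vim had 2164, 2224, 2052, 1945 and 1602 CPM in bC8FAE wells 1 to 5, against 1543, 1299, 1081 and 1334 CPM in MEF wells 1 to 4. Vim did not overlap between the media, with a log2 fold change of 0.52 ± 0.12 (edgeR adjusted p = 0.000285), and 0.47 ± 0.09 without the low wells.

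Gene groups differed widely in how many members changed. Each list is given by its counts, to be read against 15.2% higher and 16.9% lower over all genes tested, and by its median log2 fold change, to be read against 0.015. In the list of complement and acute phase genes, all 16 tested members fell. Members that fell were most of those tested for collagen cross-linking (19 of 22), contractile proteins (14 of 17), proteoglycans (17 of 21), elastic fibres (12 of 16), growth factors of the IGF and imprinted group (17 of 23) and sterol synthesis (16 of 24). Members that rose made up the largest shares of those tested for neuronal genes (9 of 14), ERK-driven factors (11 of 18) and Wnt targets (13 of 26).

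**Figure D2:**
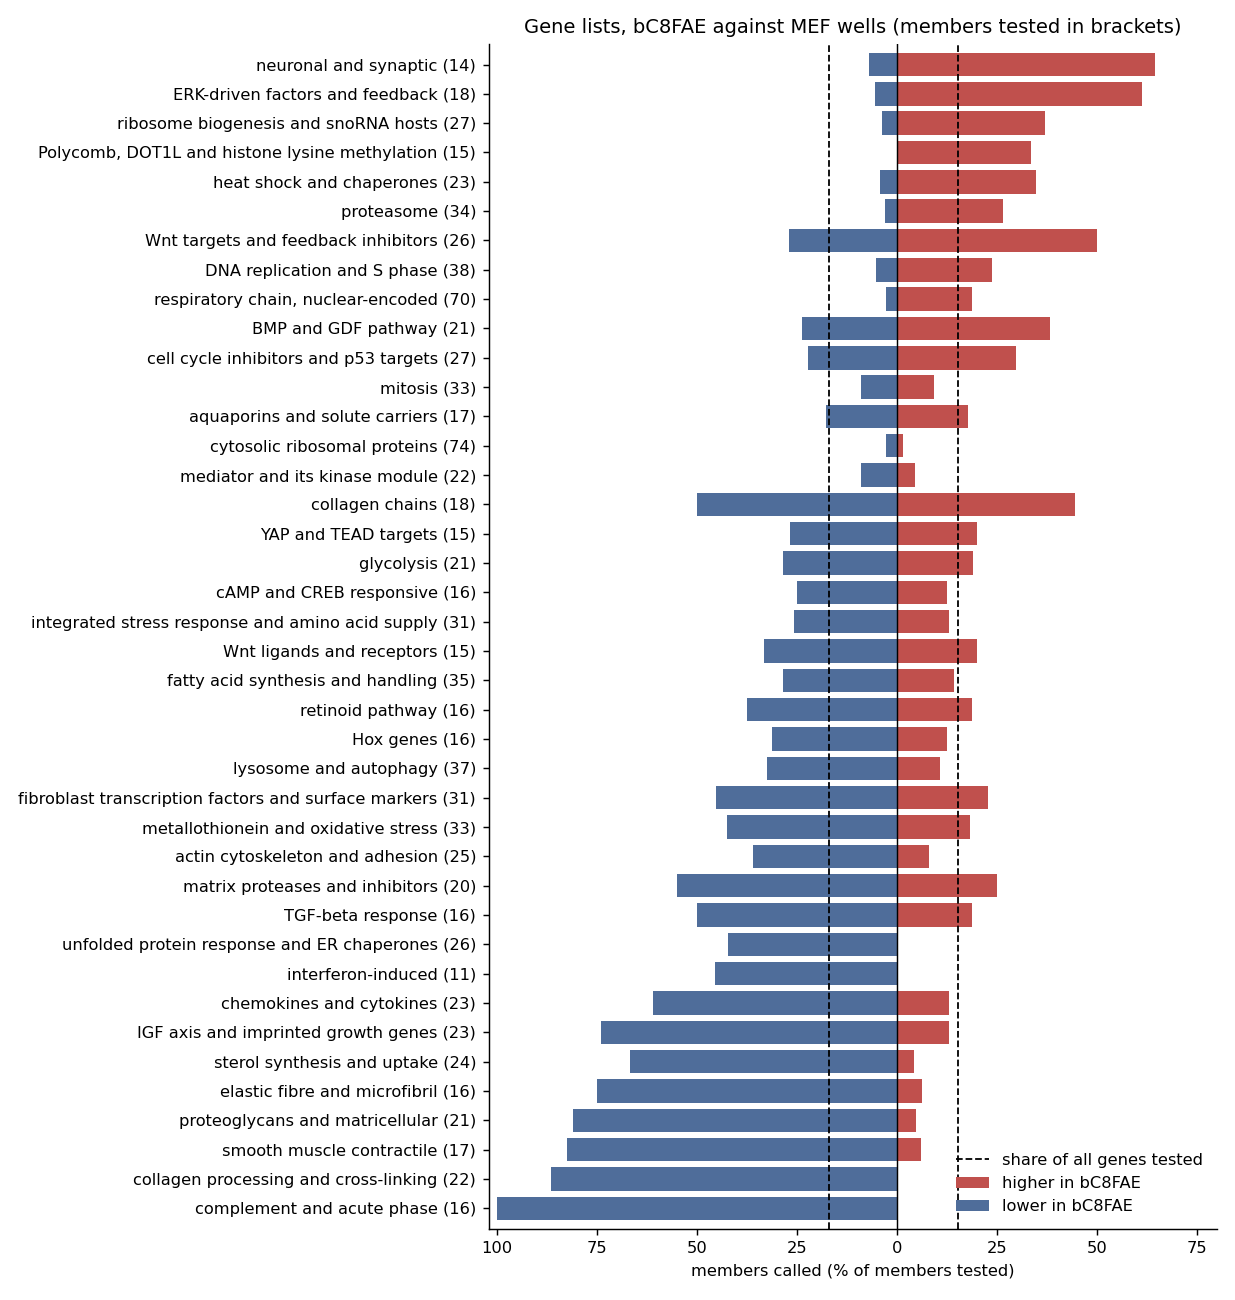
For each gene list with at least 10 members tested, bars give the percentage of tested members called higher and called lower in bC8FAE wells relative to MEF wells, and dashed lines give the same percentages over all 6985 genes tested (15.2% higher, 16.9% lower). Complement, cross-linking, contractile and proteoglycan lists show the longest lower bars, and the ERK and neuronal lists the longest higher bars.

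The contractile proteins of smooth muscle and stress fibres were lower in bC8FAE wells. In that list 1 rose and 14 fell among 17 tested, with a median of -1.26 and the same counts without the low wells. Cnn2 and Myl9, which both fell, carry a CArG box, the serum response factor motif. It was searched on both strands of the 250 bases before the annotated start and a short stretch after it. These promoters are shown because they are the ones among the 11 fallen members with a promoter entry that hold the letters, which are in capitals; 1.81% of 27025 genes have such a match. Among the 2 members that were not called, Acta1 also has it. The sequences, cut to the bases before the start, are from RefSeq on GRCm38.p6, 5′ to 3′ on the strand of the gene.
Cnn2, chr10:79988350-79988599, plus strand: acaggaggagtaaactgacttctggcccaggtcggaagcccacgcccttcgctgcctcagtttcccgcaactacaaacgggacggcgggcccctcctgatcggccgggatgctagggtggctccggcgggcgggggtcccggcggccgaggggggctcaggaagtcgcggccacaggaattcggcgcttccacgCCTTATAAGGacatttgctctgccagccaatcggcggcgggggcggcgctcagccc
Myl9, chr2:156775214-156775463, plus strand: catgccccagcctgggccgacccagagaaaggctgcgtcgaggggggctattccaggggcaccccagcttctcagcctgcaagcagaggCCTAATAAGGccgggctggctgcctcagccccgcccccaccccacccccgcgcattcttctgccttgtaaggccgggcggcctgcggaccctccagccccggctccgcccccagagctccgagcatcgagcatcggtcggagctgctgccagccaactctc
In Cnn2 the match, CCTTATAAGG, starts 56 bases before the annotated start, and in Myl9 CCTAATAAGG starts 161 bases before it. A match of letters describes the window and is not a measured binding site.

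Cnn2, calponin 2, an actin-binding protein, had 601, 519, 599.6, 889 and 545 CPM in bC8FAE wells 1 to 5, against 975, 685, 966 and 943 CPM in MEF wells 1 to 4. Every MEF well but well 2 lay above all bC8FAE wells, and well 2 lay within their range, with a log2 fold change of -0.61 ± 0.11 (edgeR adjusted p = 1.25e-05), and -0.67 ± 0.10 without the low wells. Myl9, the regulatory light chain of smooth muscle myosin, had 69.2, 63.0, 53.1, 75.4 and 56.3 CPM in bC8FAE wells 1 to 5, against 432, 372, 339 and 520.0 CPM in MEF wells 1 to 4, without overlap, and a log2 fold change of -2.82 ± 0.18 (edgeR adjusted p = 2.72e-20), and -2.89 ± 0.17 without the low wells. The actin of smooth muscle stress fibres, Acta2 (chromosome 19, 34241090-34255590 on mm10 by GENCODE vM21, as for the positions that follow), was among those that fell. Acta2 had 94.9, 113, 149, 176 and 115 CPM in bC8FAE wells 1 to 5, against 2621, 1779, 1600.0 and 2457 CPM in MEF wells 1 to 4. The lowest MEF well, well 3, was still far above the highest bC8FAE well, well 4, with a log2 fold change of -4.18 ± 0.15 (edgeR adjusted p = 1.2e-30), and -4.34 ± 0.13 without the low wells. Actg2, the enteric smooth muscle actin, had 15.8, 0, 5.06, 8.38 and 0 CPM in bC8FAE wells 1 to 5, against 391, 281, 173 and 359 CPM in MEF wells 1 to 4. Its level was 0 in bC8FAE wells 2 and 5, and its log2 fold change was -5.75 ± 0.30 and -5.91 ± 0.28 without the low wells; without bC8FAE well 1 3 counts were left there, a ratio of summed counts of 0.00671 (exact 95% interval 0.00138 to 0.0198). Transcripts of Acta2, Actg2 and Acta1 are near-identical in their coding parts, so reads may be shared between them. Tagln, transgelin, an actin-binding marker of smooth muscle, had 31.6, 30.4, 32.9, 41.9 and 25.6 CPM in bC8FAE wells 1 to 5, against 322, 151, 267 and 351 CPM in MEF wells 1 to 4, a log2 fold change of -3.18 ± 0.21 and -3.22 ± 0.21 without the low wells. Pdlim7, an actin-associated PDZ and LIM protein, had 318, 308, 268, 394 and 319.8 CPM in bC8FAE wells 1 to 5, against 226, 179, 180.2 and 190.1 CPM in MEF wells 1 to 4, and it was the only member of the list called higher, with a log2 fold change of 0.60 ± 0.13 (edgeR adjusted p = 0.000176), and 0.55 ± 0.13 without the low wells.

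Genes of the general actin cytoskeleton fell more often than they rose, and 14 of 25 tested were not called. In the list of actin and adhesion genes 2 rose and 9 fell among 25 tested, with a median of -0.25, and 1 rose and 9 fell without the low wells. Fhl1, a LIM-domain protein of muscle, averaged 14.9 ± 8.71 CPM in bC8FAE wells and 191 ± 51.2 CPM in MEF wells, a log2 fold change of -3.59 ± 0.25 and -3.60 ± 0.25 without the low wells. Pdlim5, a stress fibre scaffold, averaged 36.0 ± 2.51 CPM in bC8FAE wells and 86.5 ± 24.4 CPM in MEF wells, a log2 fold change of -1.21 ± 0.24 and -1.09 ± 0.25 without the low wells. Vcl, vinculin, which links integrins to actin, averaged 90.4 ± 34.3 CPM in bC8FAE wells and 144 ± 19 CPM in MEF wells, a log2 fold change of -0.92 ± 0.16 and -1.03 ± 0.17 without the low wells. Its level in bC8FAE well 4 lay within the MEF range, and reads may be shared with the overlapping gene Ap3m1. Paxillin, Pxn, which sits in focal adhesions, was higher. Pxn had 204, 187, 162, 268 and 164 CPM in bC8FAE wells 1 to 5, against 87.2, 122, 101 and 129 CPM in MEF wells 1 to 4. Pxn in every bC8FAE well was above that in every MEF well, with a log2 fold change of 0.72 ± 0.16 (edgeR adjusted p = 0.00022), and 0.66 ± 0.17 without the low wells. The other riser, the integrin subunit Itgb1, had a log2 fold change of 0.40 ± 0.13 and 0.28 without the low wells, where it was not called, nor was it without MEF well 4 or when only the wells of these media were fitted. Srf itself, serum response factor, was not called, at 0.16 ± 0.29, and neither were filamin Flna (-0.12 ± 0.10) and profilin Pfn1 (-0.05 ± 0.13).

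**Figure D3:**
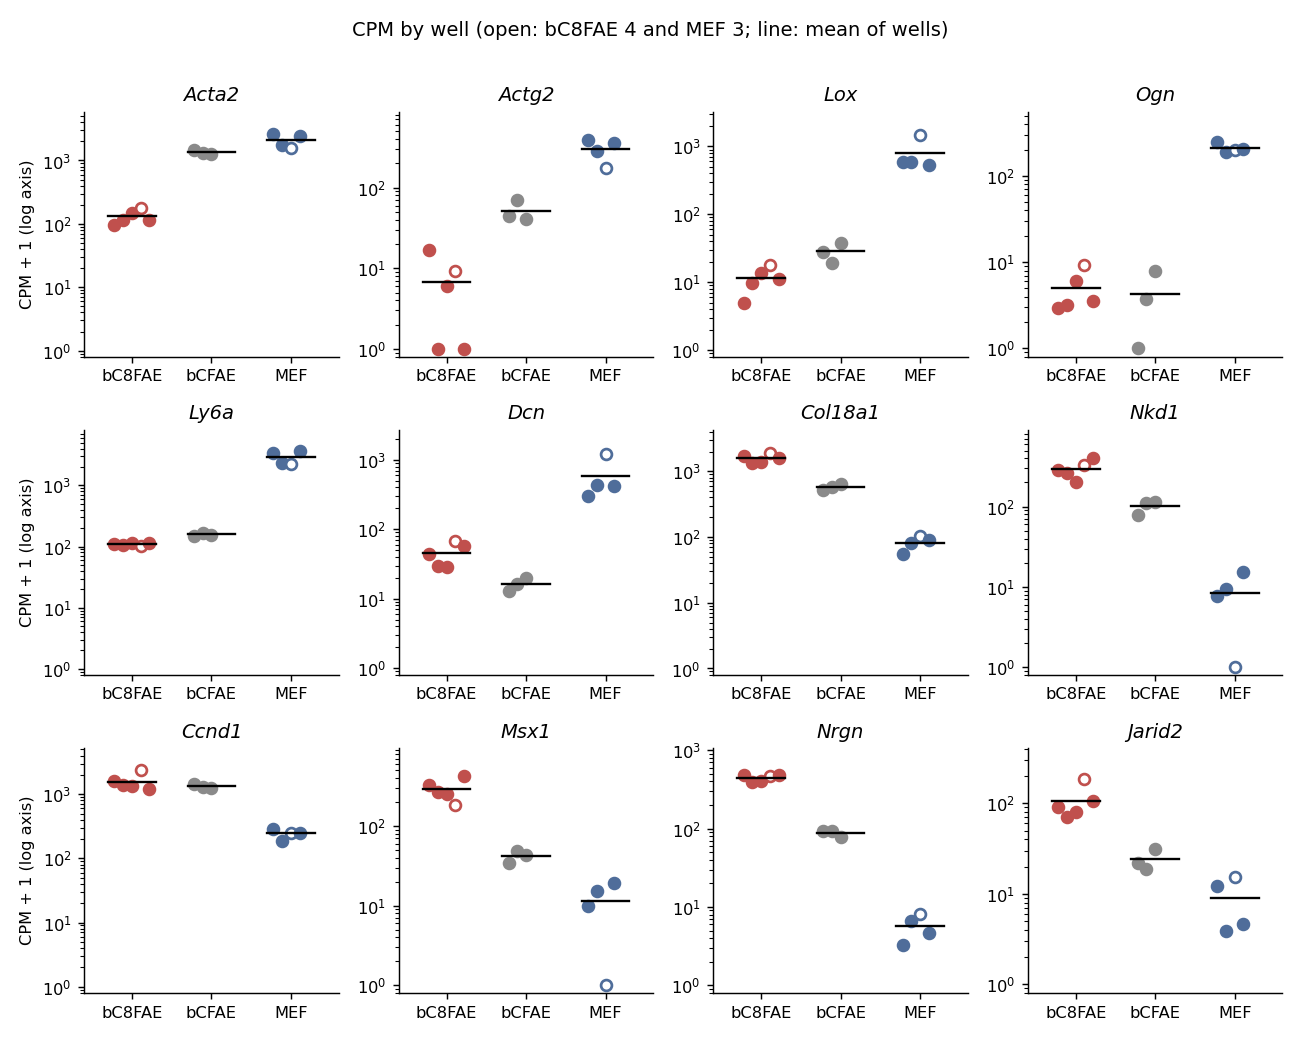
CPM plus 1 on a log axis for 12 genes, by well, in bC8FAE, bCFAE and MEF wells; open symbols are bC8FAE well 4 and MEF well 3, and lines are means. Acta2, Actg2, Lox, Ogn, Ly6a and Dcn lie lower, and Col18a1, Nkd1, Ccnd1, Msx1, Nrgn and Jarid2 higher, in every bC8FAE well than in any MEF well.

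The matrix programme fell in most parts but not in all collagens. Among collagen chains 8 rose and 9 fell among 18 tested, and 7 rose and 9 fell among 18 tested without the low wells. The fibrillar chains Col1a1, Col1a2 and Col3a1, collagens of skin and tendon, were lower, while the type VI chains Col6a1, Col6a2 and Col6a3 rose by less than 1 on the log2 scale. Col6a3 was not called without the low wells or without MEF well 1. Col1a1 had 90.9, 111, 111, 251 and 115 CPM in bC8FAE wells 1 to 5, against 747, 517, 829 and 552 CPM in MEF wells 1 to 4. Well 4 was the highest bC8FAE well and still lay below every MEF well, with a log2 fold change of -2.51 ± 0.14 (edgeR adjusted p = 5.46e-22), and -2.58 ± 0.14 without the low wells. Col1a2 had a log2 fold change of -2.16 ± 0.13 and -2.24 ± 0.12 without the low wells, and Col3a1 of -2.29 ± 0.18 and -2.35 ± 0.17 without the low wells. Col18a1, the basement membrane chain from which endostatin is cut (chromosome 10, 77052178-77166548), rose. Col18a1 had 1694, 1351, 1374, 1911 and 1581 CPM in bC8FAE wells 1 to 5, against 53.7, 79.6, 101 and 89.7 CPM in MEF wells 1 to 4. The groups were far apart, with a log2 fold change of 4.28 ± 0.15 (edgeR adjusted p = 1.53e-31), and 4.32 ± 0.14 without the low wells. Col7a1, the anchoring fibril collagen, had 41.5, 63.0, 58.2, 168 and 28.1 CPM in bC8FAE wells 1 to 5, against 2.24, 2.84, 7.21 and 3.59 CPM in MEF wells 1 to 4. Col7a1 separated the media without overlap, while bC8FAE well 4 was the highest of its group, with a log2 fold change of 3.93 ± 0.56 (edgeR adjusted p = 6.47e-08), and a ratio of summed counts of 17.2 (exact 95% interval 5.69 to 85.2) without the low wells; it overlaps Mir711. Col26a1 held 72 counts over the bC8FAE wells and 1 over the MEF wells, a ratio of 46.8 (exact 95% interval 8.14 to 1874), and 43.1 without the low wells, 29.6 without MEF well 1 and at least 11.1-fold higher without MEF well 2.

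Enzymes that process and cross-link collagen were mostly lower. In this list 0 rose and 19 fell among 22 tested, with a median of -1.21, and the counts were the same without the low wells. Lox, lysyl oxidase, the founding cross-linking enzyme, had 3.95, 8.69, 12.7, 16.8 and 10.2 CPM in bC8FAE wells 1 to 5, against 593, 583, 1449 and 527 CPM in MEF wells 1 to 4. MEF well 3 stood above the other MEF wells, and no bC8FAE well came near any of them, with a log2 fold change of -6.32 ± 0.27 (edgeR adjusted p = 8.48e-28), and -6.07 ± 0.22 without the low wells. Loxl1, a lysyl oxidase relative that acts on elastin, had 227, 258, 172, 218 and 192 CPM in bC8FAE wells 1 to 5, against 912, 873, 944 and 961 CPM in MEF wells 1 to 4. Loxl1 lay below the MEF wells in all 5 bC8FAE wells, with a log2 fold change of -2.16 ± 0.11 (edgeR adjusted p = 1.57e-23), and -2.15 ± 0.11 without the low wells. Wells of each medium were close together for this gene. Tgm2, tissue transglutaminase, had 1.98, 4.34, 2.53, 0 and 5.12 CPM in bC8FAE wells 1 to 5, against 163, 114, 7.21 and 75.3 CPM in MEF wells 1 to 4. MEF well 3 was far below the other MEF wells here, and the log2 fold change was -5.0 ± 0.47 and -5.12 ± 0.39 without the low wells. The lysyl hydroxylase Plod1 (-0.25 ± 0.19) and the prolyl hydroxylase subunit P4ha3 (-0.17 ± 0.27) were tested and not called. Lox and Tgm2 overlap exons of other annotated genes (AC161119.1 for Lox, Gm20412 and Rprd1b for Tgm2), and whether strand was used in counting is not recorded in the labels.

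Small proteoglycans and matricellular proteins were lower too. In their list 1 rose and 17 fell among 21 tested, with a median of -1.97, and 1 rose and 16 fell among 20 tested without the low wells. Ogn, osteoglycin, a small leucine-rich proteoglycan, had 1.98, 2.17, 5.06, 8.38 and 2.56 CPM in bC8FAE wells 1 to 5, against 250.5, 190.4, 202 and 208 CPM in MEF wells 1 to 4. All 5 bC8FAE wells were at single digits, with a log2 fold change of -6.01 ± 0.31 (edgeR adjusted p = 9.26e-24), and -6.19 ± 0.33 without the low wells. Dcn, decorin, which coats collagen fibrils, had 43.5, 28.2, 27.8, 67.1 and 56.3 CPM in bC8FAE wells 1 to 5, against 302, 438, 1211 and 416 CPM in MEF wells 1 to 4. The groups did not overlap, and MEF well 3 was the highest, with a log2 fold change of -3.70 ± 0.24 (edgeR adjusted p = 9.26e-20), and -3.34 ± 0.18 without the low wells. Lum, lumican, a relative of decorin, averaged 36.3 ± 15.7 CPM in bC8FAE wells and 237 ± 185 CPM in MEF wells, a log2 fold change of -2.55 ± 0.30 and -2.15 ± 0.26 without the low wells. Sparc, osteonectin, a collagen-binding glycoprotein, averaged 609.6 ± 197 CPM in bC8FAE wells and 2027 ± 466 CPM in MEF wells, a log2 fold change of -1.85 ± 0.12 and -1.84 ± 0.10 without the low wells. Thbs1, thrombospondin 1, which activates latent TGF-beta, averaged 17.2 ± 10.6 CPM in bC8FAE wells and 208 ± 57.6 CPM in MEF wells, a log2 fold change of -3.89 ± 0.26 and -4.02 ± 0.27 without the low wells; it overlaps Gm29233. Osteopontin, Spp1, stayed out of this pattern. Spp1 had 2265, 2302, 2517, 2003 and 1254 CPM in bC8FAE wells 1 to 5, against 1901, 1518, 2393 and 1808 CPM in MEF wells 1 to 4, with overlapping wells and a log2 fold change of 0.08 ± 0.14 that was not called. The only riser was Nov, a secreted CCN family protein. Nov had 451, 503.9, 491, 587 and 481 CPM in bC8FAE wells 1 to 5, against 148, 122, 108 and 104 CPM in MEF wells 1 to 4. Nov did not overlap between the media, with a log2 fold change of 1.92 ± 0.14 (edgeR adjusted p = 7.6e-18), and 1.86 ± 0.14 without the low wells.

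Elastic fibre genes followed, with 1 member higher and 12 lower among 16 tested, a median of -1.82, and unchanged counts without the low wells. Mgp, matrix Gla protein, an inhibitor of calcification, had 13.8, 4.34, 12.7, 0 and 12.8 CPM in bC8FAE wells 1 to 5, against 731, 807, 223 and 768 CPM in MEF wells 1 to 4. MEF well 3 was the lowest MEF well and still far above all bC8FAE wells, with a log2 fold change of -6.07 ± 0.30 (edgeR adjusted p = 4.67e-25), and -6.17 ± 0.22 without the low wells. Fbln5, fibulin 5, which assembles elastic fibres, averaged 7.12 ± 5.74 CPM in bC8FAE wells and 99.0 ± 22.3 CPM in MEF wells, a log2 fold change of -4.13 ± 0.33 and -4.28 ± 0.36 without the low wells. Efemp1, fibulin 3, averaged 9.32 ± 2.91 CPM in bC8FAE wells and 84.0 ± 26.8 CPM in MEF wells, a log2 fold change of -3.25 ± 0.34 and -3.31 ± 0.34 without the low wells. Fbln1 was tested and not called, at -0.17 ± 0.13. Ltbp4, a latent TGF-beta binding protein, was the only riser, at 0.87 ± 0.29, with overlapping wells, and at 0.91 ± 0.32 without the low wells. Without MEF well 2 its value was 0.56 and it was not called.

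Proteases and their inhibitors went both ways, with 5 members higher and 11 lower among 20 tested and the same counts without the low wells. Mmp10, stromelysin 2, had 130.5, 113, 147, 209.6 and 123 CPM in bC8FAE wells 1 to 5, against 0, 8.53, 14.4 and 0 CPM in MEF wells 1 to 4. It was at 0 in MEF wells 1 and 4, with a log2 fold change of 4.88 ± 0.39 (edgeR adjusted p = 6.09e-16), and a ratio of summed counts of 45.9 (exact 95% interval 15.5 to 224) without the low wells. Without MEF well 1 its log2 fold change was 4.25, and without MEF well 2, with 2 MEF counts left, the ratio of summed counts was 57.5 (exact 95% interval 15.8 to 478). Htra1, a secreted serine protease, had 642, 641, 668, 847 and 1405 CPM in bC8FAE wells 1 to 5, against 85.0, 93.8, 93.7 and 96.8 CPM in MEF wells 1 to 4. Well 5 was the highest bC8FAE well, and all exceeded the MEF wells, with a log2 fold change of 3.11 ± 0.20 (edgeR adjusted p = 1.71e-19), and 3.13 ± 0.20 without the low wells. Prss23, a secreted serine protease, had 1.98, 2.17, 2.53, 25.1 and 5.12 CPM in bC8FAE wells 1 to 5, against 219, 119, 281 and 172 CPM in MEF wells 1 to 4. Well 4 stood apart from the other bC8FAE wells and still lay below every MEF well, with a log2 fold change of -5.42 ± 0.32 (edgeR adjusted p = 2.61e-21), and -5.86 ± 0.35 without the low wells; it overlaps Prss23os. Adamts5, an aggrecanase, held 2 counts over the bC8FAE wells and 60 over the MEF wells, a ratio of 0.0217 (exact 95% interval 0.00256 to 0.0817), and 0.0131 without the low wells and 0.0116 without bC8FAE well 4. Tissue plasminogen activator Plat and protease nexin Serpine2 were not called.

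Regulators and surface proteins of fibroblasts changed in both directions. Here 7 rose and 14 fell among 31 tested, and 7 rose and 14 fell among 30 tested without the low wells. Ly6a, Sca-1, a surface protein of fibroblast progenitors, had 111, 104, 114, 101 and 115 CPM in bC8FAE wells 1 to 5, against 3366, 2317, 2198 and 3612 CPM in MEF wells 1 to 4. The bC8FAE wells were within a narrow range and far below the MEF wells, with a log2 fold change of -4.77 ± 0.15 (edgeR adjusted p = 9.43e-34), and -4.86 ± 0.12 without the low wells; other Ly6 genes are close in sequence, and reads may be shared. Osr1, a zinc finger factor of connective tissue progenitors, had 0, 0, 2.53, 0 and 10.2 CPM in bC8FAE wells 1 to 5, against 112, 153, 57.7 and 111 CPM in MEF wells 1 to 4. It was at 0 in bC8FAE wells 1, 2 and 4, with a log2 fold change of -5.36 ± 0.44 (edgeR adjusted p = 2.01e-15), and -5.39 ± 0.41 without the low wells. Without bC8FAE well 5 1 count was left there, a ratio of summed counts of 0.00574 (exact 95% interval 0.000144 to 0.0325). S100a4, fibroblast-specific protein 1, a calcium-binding protein, averaged 637 ± 169 CPM in bC8FAE wells and 3458 ± 1042 CPM in MEF wells, a log2 fold change of -2.46 ± 0.15 and -2.44 ± 0.12 without the low wells; it overlaps Gm42674. Msx1, a homeobox factor and BMP target, rose (chromosome 5, 37820485-37824583). Msx1 had 328, 263, 248, 184 and 427 CPM in bC8FAE wells 1 to 5, against 8.95, 14.2, 0 and 17.9 CPM in MEF wells 1 to 4. The lowest bC8FAE well, well 4, was well above the highest MEF well, with a log2 fold change of 4.62 ± 0.31 (edgeR adjusted p = 6.21e-19), and 4.52 ± 0.28 without the low wells. The hyaluronan receptor Cd44 (-0.46 ± 0.19, edgeR adjusted p = 0.0536) and Runx2, a bone factor (0.48 ± 0.40), were not called.

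Targets of TGF-beta fell more often than they rose, and those of YAP, the Hippo pathway's transcriptional partner of TEAD factors, changed in both directions. Among TGF-beta response genes 3 rose and 8 fell among 16 tested, with a median of -0.63, and 2 rose and 8 fell among 16 tested without the low wells. Ltbp2, a latent TGF-beta binding protein, averaged 23.7 ± 14.1 CPM in bC8FAE wells and 90.9 ± 55.2 CPM in MEF wells, a log2 fold change of -1.92 ± 0.30 and -1.70 ± 0.31 without the low wells. Fst, follistatin, which binds activins, averaged 29.6 ± 8.52 CPM in bC8FAE wells and 79.8 ± 33.8 CPM in MEF wells, a log2 fold change of -1.36 ± 0.26 and -1.20 ± 0.28 without the low wells. Inhba, the activin A subunit, had a log2 fold change of 1.59 ± 0.55 (edgeR adjusted p = 0.0199), and 1.37 without the low wells, where it was not called, nor was it without MEF well 1 or with DESeq2. Among YAP and TEAD targets 3 rose and 4 fell among 15 tested, 3 and 3 among 14 without the low wells. Axl, a receptor tyrosine kinase, had 128, 119, 157, 235 and 97.2 CPM in bC8FAE wells 1 to 5, against 400.3, 327, 454 and 402 CPM in MEF wells 1 to 4. Axl in every bC8FAE well was below that in every MEF well, with a log2 fold change of -1.58 ± 0.14 (edgeR adjusted p = 7.38e-15), and -1.64 ± 0.14 without the low wells. Yap1 itself (0.01 ± 0.20) and Tead1 (-0.21 ± 0.23) were not called.

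Among Wnt targets, those that rose included the pathway inhibitors Axin2, Nkd1, Nkd2, Notum, Wif1 and Kremen1, and those that fell included Dkk3, Sfrp1, Sfrp2 and Sfrp4. Dkk3 was not called without the low wells, without MEF well 3 or with no filter. In their list 13 rose and 7 fell among 26 tested, with a median of 1.13, and 13 rose and 6 fell among 26 tested without the low wells. Sp5 and Tnfrsf19 are printed because they are the members, among 10 that rose and have a promoter entry, with CTTTGAT, the TCF and LEF motif. It was searched on both strands of the 250 bases before the start and a short stretch after it. Of 27025 genes, 4.29% have it. None of the 3 members that fell and none of the 6 that were not called, counting those with an entry, had it. Capitals mark the match, and the sequences, cut to the bases before the start, are from RefSeq on GRCm38.p6, 5′ to 3′ on the strand of the gene.
Sp5, chr2:70474673-70474922, plus strand: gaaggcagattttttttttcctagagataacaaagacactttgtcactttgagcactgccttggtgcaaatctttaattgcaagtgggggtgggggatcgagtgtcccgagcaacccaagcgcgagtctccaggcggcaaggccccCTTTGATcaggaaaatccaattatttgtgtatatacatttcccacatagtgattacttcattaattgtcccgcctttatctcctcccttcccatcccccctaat
Tnfrsf19, chr14:61037988-61038237, minus strand: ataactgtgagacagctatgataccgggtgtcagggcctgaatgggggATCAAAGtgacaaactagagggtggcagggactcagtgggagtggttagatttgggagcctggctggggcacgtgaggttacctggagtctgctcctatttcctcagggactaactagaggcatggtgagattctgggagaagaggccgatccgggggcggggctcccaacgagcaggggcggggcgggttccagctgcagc
The match starts 104 bases before the annotated start of Sp5 and, read as its reverse complement ATCAAAG, 202 bases before that of Tnfrsf19.

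Sp5, a zinc finger factor induced by beta-catenin, had 31.6, 34.8, 22.8, 67.1 and 58.8 CPM in bC8FAE wells 1 to 5, against 4.47, 2.84, 0 and 0 CPM in MEF wells 1 to 4. It was at 0 in MEF wells 3 and 4, and the ratio of summed counts was 15.6 (exact 95% interval 5.13 to 77.4), and 13.1 without the low wells and 29.6 without MEF well 1. Tnfrsf19, a TNF receptor family member known as TROY, had 87.0, 73.8, 73.4, 67.1 and 84.4 CPM in bC8FAE wells 1 to 5, against 2.24, 2.84, 0 and 3.59 CPM in MEF wells 1 to 4, a ratio of summed counts of 32.1 (exact 95% interval 10.8 to 157), and 28.7 without the low wells. The bC8FAE wells were close together, far above the MEF wells. Nkd1, naked cuticle 1, a feedback inhibitor that binds Dishevelled, had 283, 265, 202, 327 and 407 CPM in bC8FAE wells 1 to 5, against 6.71, 8.53, 0 and 14.3 CPM in MEF wells 1 to 4 (chromosome 8, 88521354-88594884). Every bC8FAE well was far above the MEF wells, with a log2 fold change of 5.04 ± 0.29 (edgeR adjusted p = 1.11e-21), and 4.86 ± 0.29 without the low wells. Notum, a secreted enzyme that strips the lipid from Wnt proteins, had 81.0, 78.2, 55.7, 83.8 and 133 CPM in bC8FAE wells 1 to 5, against 0, 5.68, 0 and 14.3 CPM in MEF wells 1 to 4. It was at 0 in MEF wells 1 and 3, with a log2 fold change of 3.99 ± 0.43 (edgeR adjusted p = 2.08e-11), and 3.84 ± 0.43 without the low wells. Its log2 fold change was 3.36 without MEF well 1, and without MEF well 4, with 2 MEF counts left, the ratio of summed counts was 40.3 (exact 95% interval 11 to 336). Axin2, a scaffold of the beta-catenin destruction complex, held 57 counts over the bC8FAE wells and 1 over the MEF wells, a ratio of 37.0 (exact 95% interval 6.39 to 1489), and 28.9 without the low wells, 23.4 without MEF well 1 and at least 8.78-fold higher without MEF well 2; it overlaps Gm11670.

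The TCF and LEF factors themselves split. Lef1 had 23.7, 19.5, 15.2, 33.5 and 17.9 CPM in bC8FAE wells 1 to 5, against 0, 0, 0 and 3.59 CPM in MEF wells 1 to 4, a ratio of summed counts of 24.7 (exact 95% interval 4.17 to 1001), and 20.9 without the low wells, 15.6 without MEF well 1 and at least 6.35-fold higher without MEF well 4. Tcf7 had 39.5, 45.6, 43.0, 92.2 and 53.7 CPM in bC8FAE wells 1 to 5, against 2.24, 2.84, 0 and 0 CPM in MEF wells 1 to 4, a ratio of summed counts of 29.2 (exact 95% interval 7.86 to 245), and 24.3 without the low wells. Both were called higher. In contrast Tcf7l1, a factor that mostly represses, had 51.4, 21.7, 35.4, 16.8 and 28.1 CPM in bC8FAE wells 1 to 5, against 85.0, 122, 101 and 96.8 CPM in MEF wells 1 to 4. Tcf7l1 separated the media without overlap, with a log2 fold change of -1.63 ± 0.27 (edgeR adjusted p = 1.43e-06), and -1.58 ± 0.27 without the low wells. Tcf7l2 had 11.9, 4.34, 5.06, 8.38 and 12.8 CPM in bC8FAE wells 1 to 5, against 40.3, 22.7, 43.2 and 25.1 CPM in MEF wells 1 to 4. Tcf7l2 lay below the MEF wells in all 5 bC8FAE wells, with a log2 fold change of -1.93 ± 0.43 (edgeR adjusted p = 0.000282), and -1.86 ± 0.46 without the low wells. All 4 separated the media without overlap. The cell cycle gene Ccnd1, a target of both Wnt and ERK signalling, was abundant. Ccnd1, cyclin D1, had 1605, 1384, 1323, 2356 and 1210.0 CPM in bC8FAE wells 1 to 5, against 291, 188, 245 and 251 CPM in MEF wells 1 to 4. Well 4 was the highest bC8FAE well and all exceeded the MEF wells, with a log2 fold change of 2.56 ± 0.14 (edgeR adjusted p = 1.15e-23), and 2.44 ± 0.11 without the low wells. Secreted Frizzled-related proteins, which bind Wnt ligands, fell. Sfrp1 had 17.8, 28.2, 10.1, 0 and 10.2 CPM in bC8FAE wells 1 to 5, against 331, 361, 274 and 269 CPM in MEF wells 1 to 4. Sfrp1 did not overlap between the media, with a log2 fold change of -4.33 ± 0.24 (edgeR adjusted p = 2.01e-22), and -4.28 ± 0.23 without the low wells. Sfrp4 held 2 counts over the bC8FAE wells and 74 over the MEF wells, a ratio of 0.0176 (exact 95% interval 0.00209 to 0.0657), and 0.0189 without the low wells and 0.0116 without bC8FAE well 2. Ctnnb1, beta-catenin, was not called, at 0.25 ± 0.17.

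Among Wnt ligands and receptors 3 rose and 5 fell among 15 tested, and 3 rose and 6 fell among 14 tested without the low wells. Wnt4 had 49.4, 43.4, 25.3, 67.1 and 76.7 CPM in bC8FAE wells 1 to 5, against 186, 233, 86.5 and 190.1 CPM in MEF wells 1 to 4. Wnt4 in every bC8FAE well was below that in every MEF well, while MEF well 3 was the lowest of its group, with a log2 fold change of -1.95 ± 0.23 (edgeR adjusted p = 1.89e-10), and -2.11 ± 0.21 without the low wells. Fzd2, a Frizzled receptor, averaged 44.1 ± 10.1 CPM in bC8FAE wells and 119 ± 11.6 CPM in MEF wells, a log2 fold change of -1.56 ± 0.20 and -1.60 ± 0.22 without the low wells. Wnt7b held 55 counts over the bC8FAE wells and 1 over the MEF wells, in MEF well 3, a ratio of 35.7 (exact 95% interval 6.15 to 1437), and at least 10.5-fold higher without the low wells, 22.6 without MEF well 1 and at least 10.6-fold higher without MEF well 3. It overlaps AU022754. Wnt5a, a ligand of non-canonical signalling, was not called, at -0.48 ± 0.22, but was called lower without the low wells (-0.61 ± 0.23, edgeR adjusted p = 0.0316).

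ERK-driven transcription factors and feedback genes were mostly higher, with 11 members higher and 1 lower among 18 tested and a median of 1.12; 11 rose and 1 fell among 17 tested without the low wells. Etv4, an ETS factor induced by FGF and ERK signalling, had 188, 154, 139, 176 and 161 CPM in bC8FAE wells 1 to 5, against 17.9, 17.1, 43.2 and 17.9 CPM in MEF wells 1 to 4. MEF well 3 was the highest MEF well and lay below all bC8FAE wells, with a log2 fold change of 2.90 ± 0.24 (edgeR adjusted p = 2.36e-15), and 3.12 ± 0.26 without the low wells. Etv5, its close relative, had 85.0, 65.2, 55.7, 75.4 and 81.9 CPM in bC8FAE wells 1 to 5, against 13.4, 17.1, 0 and 3.59 CPM in MEF wells 1 to 4, at 0 in MEF well 3, with a log2 fold change of 2.68 ± 0.34 (edgeR adjusted p = 2.6e-09), and 2.51 ± 0.34 without the low wells. Hmga2, a chromatin architectural protein of embryonic cells, averaged 712 ± 212 CPM in bC8FAE wells and 222 ± 28.6 CPM in MEF wells, a log2 fold change of 1.57 ± 0.12 and 1.51 ± 0.12 without the low wells; it overlaps 1700006J14Rik. Junb, an AP-1 subunit, was the only member called lower, at -0.84 ± 0.19, with overlapping wells, and at -0.87 ± 0.20 without the low wells. The ETS letters GGAAGT were in the promoter window of 1 of 6 risen members with an entry (Etv5), in Junb and in 2 of 5 members not called, against 26.5% of all genes.

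The BMP list had 8 members higher and 5 lower among 21 tested; 8 rose and 4 fell among 20 tested without the low wells. The ligands Bmp2, Bmp4 and Bmp7 rose, as did Id1, Id2 and Msx1, while the secreted antagonists Grem1 and Fst and the ligand Gdf10 fell. Grem1 was not called without the low wells or without MEF well 3. Bmp2 had 59.3, 60.8, 55.7, 151 and 53.7 CPM in bC8FAE wells 1 to 5, against 2.24, 5.68, 0 and 3.59 CPM in MEF wells 1 to 4. Well 4 was the highest bC8FAE well, with a log2 fold change of 4.12 ± 0.48 (edgeR adjusted p = 2.35e-10), and 3.81 ± 0.48 without the low wells. Bmp4 had 65.2, 39.1, 40.5, 109 and 71.6 CPM in bC8FAE wells 1 to 5, against 13.4, 14.2, 43.2 and 32.3 CPM in MEF wells 1 to 4. Bmp4 overlapped between the media, with a log2 fold change of 1.36 ± 0.33 (edgeR adjusted p = 0.000819), and 1.47 ± 0.35 without the low wells. Bmp7 held 83 counts over the bC8FAE wells and 1 over the MEF wells, a ratio of 53.9 (exact 95% interval 9.42 to 2156), and 46.7 without the low wells and at least 11.4-fold higher without MEF well 1. Fstl1, follistatin-like 1, a secreted glycoprotein of mesenchyme, had 265, 215, 182, 402 and 361 CPM in bC8FAE wells 1 to 5, against 1756, 1703, 2609 and 1675 CPM in MEF wells 1 to 4. Fstl1 lay below the MEF wells in all 5 bC8FAE wells, with a log2 fold change of -2.87 ± 0.14 (edgeR adjusted p = 3.69e-25), and -2.80 ± 0.12 without the low wells. The BMP target Id3 was at 0.02 ± 0.11 and was not called. Smad5, a BMP signal transducer, was not called either (-0.02 ± 0.18).

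Cyclic AMP and retinoid genes gave mixed counts. For genes responsive to cAMP and CREB 2 rose and 4 fell among 16 tested, 2 and 4 among 15 without the low wells, a share of called members near that over all genes. Pde4d, a phosphodiesterase that degrades cAMP, had 128, 97.7, 126, 184 and 159 CPM in bC8FAE wells 1 to 5, against 47.0, 34.1, 64.9 and 25.1 CPM in MEF wells 1 to 4. Pde4d did not overlap between the media, with a log2 fold change of 1.64 ± 0.23 (edgeR adjusted p = 3.96e-08), and 1.72 ± 0.24 without the low wells. Pde4b, its paralog, averaged 9.97 ± 9.51 CPM in bC8FAE wells and 79.7 ± 14.5 CPM in MEF wells, a log2 fold change of -3.45 ± 0.38 and -3.66 ± 0.40 without the low wells. Akap12, an anchor of protein kinase A, averaged 3.09 ± 3.14 CPM in bC8FAE wells and 34.1 ± 15.4 CPM in MEF wells, a log2 fold change of -4.0 ± 0.55 and a ratio of summed counts of 0.0429 (exact 95% interval 0.00852 to 0.134) without the low wells. The letters TGACGTCA were in no promoter window of the 4 called members with an entry and in 2 of 9 members not called, against 2.03% of all genes. In the retinoid list 3 rose and 6 fell among 16 tested, unchanged without the low wells. Stra6, the membrane receptor that takes up retinol, had 324, 265, 281, 377 and 233 CPM in bC8FAE wells 1 to 5, against 4.47, 2.84, 21.6 and 7.17 CPM in MEF wells 1 to 4. MEF well 3 was the highest MEF well, far below all bC8FAE wells, with a log2 fold change of 5.32 ± 0.27 (edgeR adjusted p = 1.9e-24), and 5.77 ± 0.30 without the low wells. Meis1, a homeobox partner of Hox proteins, averaged 8.13 ± 2.91 CPM in bC8FAE wells and 33.0 ± 10.6 CPM in MEF wells, a log2 fold change of -1.96 ± 0.44 and -1.87 ± 0.47 without the low wells; it overlaps Gm16140 and Gm37818. The direct repeat of AGGTCA spaced by 5 bases was in no window of this list, against 0.0111% of all genes.

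Complement and acute phase genes, which are made in the liver and by activated stromal cells, were lower in bC8FAE wells in every member tested. Of 31 members, 16 were tested and 6 had no count in any of the 9 wells. All 16 fell, with and without the low wells, where 16.9% of all genes did. Members at 0 in all bC8FAE wells passed the filter only through other wells. A fall was the only call open to them, so this count is a description only. Their median log2 fold change was -6.79, or -5.42 with the 5 members at 0 counts in all bC8FAE wells set to their bound; without the low wells these values were -5.80 and -4.33. MEF well 3 carried much of the MEF level of several members, so those named are given by well. Saa3, serum amyloid A3, an acute phase protein, had 1.98, 2.17, 0, 8.38 and 0 CPM in bC8FAE wells 1 to 5, against 40.3, 31.3, 12188 and 7.17 CPM in MEF wells 1 to 4. MEF well 3 stood far above all other wells, and MEF well 4 lay within the bC8FAE range. Over the wells this gives 3 against 1722 counts and a ratio of 0.00113 (exact 95% interval 0.000233 to 0.00331), but 0.000724 without MEF well 1, 0.0557 without MEF well 3, and 2 against 31 counts and a ratio of 0.0397 (exact 95% interval 0.0046 to 0.156) without the low wells. Lcn2, lipocalin 2, which binds bacterial siderophores, had no count in any bC8FAE well, against 17.9, 34.1, 1651 and 17.9 CPM in MEF wells 1 to 4. It was at least 130.3-fold lower in bC8FAE wells, at least 13.6-fold without the low wells, at least 14.5-fold without MEF well 3 and at least 199-fold without MEF well 1. Such bounds set the group at 0 to 3 counts over its summed total, and intervals and bounds cover counting error only.

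Other members had counts in every MEF well. Serping1, the C1 inhibitor of complement, had 9.88, 2.17, 2.53, 8.38 and 0 CPM in bC8FAE wells 1 to 5, against 581, 708, 1269 and 524 CPM in MEF wells 1 to 4. All MEF wells were above all bC8FAE wells by a wide margin, with a log2 fold change of -7.35 ± 0.28 (edgeR adjusted p = 5.36e-30), and -7.21 ± 0.25 without the low wells; without bC8FAE well 1, with 3 bC8FAE counts left, it had a ratio of summed counts of 0.00322 (exact 95% interval 0.000662 to 0.00943). C3, the central complement component, had no count in any bC8FAE well, against 4.47, 48.3, 360.4 and 39.5 CPM in MEF wells 1 to 4. It was at least 41.0-fold lower, and 16.3-fold without the low wells, 63.3-fold without MEF well 1 and 17.4-fold without MEF well 3. Ptx3, pentraxin 3, a soluble pattern receptor, had no count in any bC8FAE well, against 47.0, 48.3, 129.7 and 43.0 CPM in MEF wells 1 to 4, at least 34.9-fold lower, and 27.1-fold without the low wells. Serpina3n, an acute phase protease inhibitor, had 0, 2.17, 0, 8.38 and 0 CPM in bC8FAE wells 1 to 5, against 121, 136, 281 and 133 CPM in MEF wells 1 to 4, a ratio of 0.0073 (exact 95% interval 0.000878 to 0.0268), and 0.00442 without the low wells, 0.00484 without bC8FAE well 2 and 0.0039 without bC8FAE well 4; its family is close in sequence and reads may be shared. Hp, haptoglobin, had no count in any bC8FAE well, against 8.95, 19.9, 159 and 3.59 CPM in MEF wells 1 to 4. MEF well 3 held most of it, and the bound was at least 17.4-fold lower, 6.50-fold without the low wells and 6.95-fold without MEF well 3; DESeq2 did not call it. Steap4, a metalloreductase, had 0, 0, 0, 8.38 and 0 CPM in bC8FAE wells 1 to 5, against 35.8, 65.4, 309.9 and 46.6 CPM in MEF wells 1 to 4, a ratio of 0.00684 (exact 95% interval 0.000171 to 0.039), and at least 28.2-fold lower without the low wells, at least 45.6-fold lower without bC8FAE well 4 and 0.0111 without MEF well 3. C1s, a complement protease, had no count in any bC8FAE well, against 35.8, 39.8, 123 and 17.9 CPM in MEF wells 1 to 4. Of the MEF wells the highest was well 3, and C1s was at least 26.7-fold lower, and 19-fold without the low wells.

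**Figure D4:**
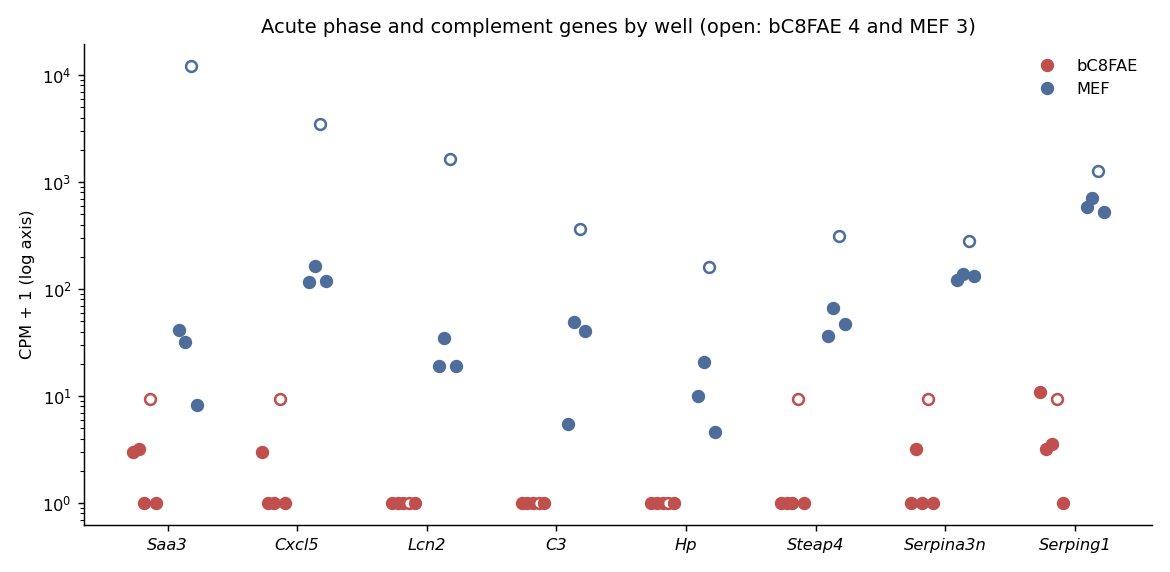
CPM plus 1 on a log axis of Saa3, Cxcl5, Lcn2, C3, Hp, Steap4, Serpina3n and Serping1 in each bC8FAE well and each MEF well; open symbols are the low wells. MEF well 3 is the highest MEF well for all 8 genes, and every MEF well lies above every bC8FAE well except MEF well 4 for Saa3.

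Chemokines and cytokines were mostly lower, with 3 members higher and 14 lower among 23 tested and a median of -1.46; 4 rose and 12 fell among 23 tested without the low wells. Cxcl5, a neutrophil attractant, had 1.98, 0, 0, 8.38 and 0 CPM in bC8FAE wells 1 to 5, against 116, 162, 3474 and 118 CPM in MEF wells 1 to 4. MEF well 3 was far above the other MEF wells, which were all above the bC8FAE wells, and the ratio was 0.00208 (exact 95% interval 0.000252 to 0.00756), 0.00433 without the low wells, 0.00811 without MEF well 3 and 0.00111 without bC8FAE well 4. Cxcl12, the stromal ligand of Cxcr4, had 5.93, 8.69, 5.06, 16.8 and 0 CPM in bC8FAE wells 1 to 5, against 365, 338, 468 and 279.7 CPM in MEF wells 1 to 4. Cxcl12 in every bC8FAE well was below that in every MEF well, with a log2 fold change of -5.89 ± 0.26 (edgeR adjusted p = 3.94e-27), and -6.00 ± 0.27 without the low wells. Ccl12, a monocyte attractant of mice, was among the genes with the largest rises. Ccl12 had 90.9, 39.1, 75.9, 83.8 and 115 CPM in bC8FAE wells 1 to 5, against 0, 0, 0 and 3.59 CPM in MEF wells 1 to 4, a ratio of 96.8 (exact 95% interval 17.1 to 3850.3), and 85.5 without the low wells, 61.2 without MEF well 1 and at least 24.9-fold higher without MEF well 4. The NF-kappaB inhibitor Nfkbia (-0.23 ± 0.31) and Nfkb2 (0.64 ± 0.30) were not called. Among interferon-induced genes 0 rose and 5 fell among 11 tested, 0 and 5 among 10 without the low wells. Ifitm3, a membrane protein that restricts virus entry, had 472, 510.4, 509, 411 and 503.97 CPM in bC8FAE wells 1 to 5, against 2031, 1984, 2933 and 1976 CPM in MEF wells 1 to 4. Ifitm3 separated the media without overlap, with a log2 fold change of -2.22 ± 0.11 (edgeR adjusted p = 1.22e-24), and -2.06 ± 0.09 without the low wells. Ifitm1, Ifitm2 and Ifitm3 are close in sequence and reads may be shared. Class I antigen genes B2m (-0.16 ± 0.14) and H2-K1 (-0.42 ± 0.19) were not called.

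Markers of macrophages and mast cells, which also make many of these proteins, are given beside them. Of 22 markers, 4 passed the filter, of which 1 rose and 2 fell, also without the low wells. Lyz2 and Tyrobp fell, Mcpt8 rose and Cd68 was not called. Their summed level was 67.3 to 151 CPM over the bC8FAE wells and 226 to 454 CPM over the MEF wells, while 6 markers (Ptprc, Itgam, Cd52, Kit, Cpa3 and Mcpt4) were at 0 in all 9 wells. Lyz2, lysozyme, had 29.6, 10.9, 27.8, 33.5 and 35.8 CPM in bC8FAE wells 1 to 5, against 129.7, 136, 274 and 139.9 CPM in MEF wells 1 to 4. Lyz2 lay below the MEF wells in all 5 bC8FAE wells, while bC8FAE well 2 was the lowest of its group and MEF well 3 was the highest of its group, with a log2 fold change of -2.59 ± 0.28 (edgeR adjusted p = 3.36e-11), and -2.43 ± 0.28 without the low wells. Mcpt8, a basophil protease, averaged 39.4 ± 14.9 CPM in bC8FAE wells and 18.4 ± 16.6 CPM in MEF wells, a log2 fold change of 1.3 ± 0.35 and 1.69 ± 0.40 without the low wells. MEF well 3, at 43.2 CPM of Mcpt8, lay within the bC8FAE range. The part of such cells in the falls above was not tested. Endothelial markers had a summed level of 116 to 154 CPM over the bC8FAE wells and 57.4 to 86.5 CPM over the MEF wells. Of 3 tested, 1 rose, also without the low wells, while Egfl7 and Ramp2 were not called and their wells overlapped. The riser, Esam, a junction protein, held 147 counts over the bC8FAE wells and 2 over the MEF wells. Its ratio was 47.8 (exact 95% interval 13.0 to 398), 42.7 without the low wells and 30.2 without MEF well 1. Without MEF well 2, Esam was at least 22.6-fold higher. Tie1 and Cldn5 were at 0 in all 9 wells. Myod1, Myog, Myf6, Pax7, Pax3 and Nkx2-5 of muscle and Adipoq and Plin1 of fat were at 0 in all 9 wells. Markers of chondrocytes and osteoblasts, glia and keratinocytes each had 1 member tested, and none was called.

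Several of the genes with the largest rises had no count at all in the MEF wells. Tmem179, a membrane protein of neurons, had 102 counts over the bC8FAE wells. Tmem179 had 59.3, 56.5, 58.2, 25.1 and 51.2 CPM in bC8FAE wells 1 to 5, against no count in any MEF well. It was at least 22.1-fold higher, and at least 20.3-fold without the low wells. With 0 MEF counts as well, Trpm1, a cation channel of melanocytes and retina, was at least 12.8-fold higher, Ism1, the secreted protein isthmin 1, at least 12.1-fold, the netrin receptor Unc5d at least 11.9-fold and Prokr1, a prokineticin receptor, at least 11.9-fold. The gene 1700012B09Rik was at least 12.8-fold higher and Rnf183, a ubiquitin ligase of the RING type, at least 11.5-fold. Without the low wells the bounds were 11.3 for Trpm1, 11.1 for Ism1, 10.2 for Unc5d, 10.7 for Prokr1, 11.9 for 1700012B09Rik and 9.64 for Rnf183. Bounds of at least 9.10-fold held for Cd83, 7.58-fold for Cbfa2t3, 7.15-fold for Fam101a, 6.93-fold for Grp and 6.28-fold for Calca. Grp and Calca encode the neuropeptides gastrin-releasing peptide and calcitonin gene-related peptide. Every one of these bounds shrinks without MEF well 1, the deepest MEF well, to 14.0-fold for Tmem179 and 3.97-fold for Calca. Trpm1 overlaps Gm44722 and Cbfa2t3 overlaps Gm10612.

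Of 41 members of the neuronal list 14 were tested, and 10 had no count in any of the 9 wells. Among the 14 tested 9 were higher and 1 lower, with a median of 1.94, unchanged in counts without the low wells. Members with few MEF counts passed the filter through wells of other names, so the number of risers is a description only. Nrgn, neurogranin, a calmodulin-binding protein of dendrites, had 478, 389, 399.7, 469 and 478 CPM in bC8FAE wells 1 to 5, against 2.24, 5.68, 7.21 and 3.59 CPM in MEF wells 1 to 4 (chromosome 9, 37544492-37552904). The bC8FAE wells were tightly grouped, with a log2 fold change of 6.58 ± 0.28 (edgeR adjusted p = 4.48e-28), and 6.73 ± 0.30 without the low wells. Nptx1, neuronal pentraxin 1, had 107, 102, 129, 142 and 87.0 CPM in bC8FAE wells 1 to 5, against 0, 2.84, 0 and 0 CPM in MEF wells 1 to 4, a ratio of 132 (exact 95% interval 23.4 to 5237), and 114 without the low wells, 83.4 without MEF well 1 and at least 31.3-fold higher without MEF well 2. Nefl, the light neurofilament subunit, had 130.5, 106, 139, 117 and 28.1 CPM in bC8FAE wells 1 to 5, against 0, 2.84, 7.21 and 3.59 CPM in MEF wells 1 to 4. Well 5 was the lowest bC8FAE well and still above all MEF wells; the ratio of summed counts was 42.2 (exact 95% interval 14.2 to 207), and 55.7 without the low wells and 26.7 without MEF well 1. Its exons overlap those annotated for Nefm. The peptide gene Cck was the only member to fall. Cck had 7.91, 4.34, 5.06, 0 and 17.9 CPM in bC8FAE wells 1 to 5, against 116, 176, 195 and 405 CPM in MEF wells 1 to 4. Cck did not overlap between the media, while MEF well 4 was the highest of its group, with a log2 fold change of -4.76 ± 0.35 (edgeR adjusted p = 2.31e-17), and -4.68 ± 0.34 without the low wells. Stmn2 (-0.11 ± 0.22) and Uchl1 (0.26 ± 0.24), expressed in neurons, were tested and not called.

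Among the genes with the largest falls outside the immune lists were Anxa8, Kng1, Kng2, Reg3g, Igf1 and Ptn. Anxa8, annexin A8, a calcium-dependent membrane protein, had no count in any bC8FAE well, against 96.2, 96.6, 57.7 and 172 CPM in MEF wells 1 to 4. It was at least 68.2-fold lower, and 67.8-fold without the low wells. Kng1 (at least 33.8-fold lower, and 25.5-fold without the low wells) and Kng2 (at least 20.5-fold lower, and 17.3-fold without the low wells) encode kininogens and are close in sequence, so their reads may be shared. Reg3g, an antibacterial lectin, had 1 against 112 counts, a ratio of 0.0058 (exact 95% interval 0.000146 to 0.033), and 0.00683 without the low wells and at least 45.4-fold lower without bC8FAE well 5. Ptn, the heparin-binding growth factor pleiotrophin, had 1 against 88 counts, a ratio of 0.00739 (exact 95% interval 0.000185 to 0.0422), and 0.00732 without the low wells and at least 32.9-fold lower without bC8FAE well 1.

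Insulin-like growth factor genes and imprinted growth genes were mostly lower, with 3 members higher and 17 lower among 23 tested and a median of -1.78; 3 rose and 18 fell among 23 tested without the low wells. Igf1 had 0, 0, 2.53, 0 and 0 CPM in bC8FAE wells 1 to 5, against 93.9, 68.2, 50.5 and 82.5 CPM in MEF wells 1 to 4. A single count in well 3 was all that the bC8FAE wells held, a ratio of 0.00677 (exact 95% interval 0.00017 to 0.0386), and 0.00691 without the low wells and at least 38.8-fold lower without bC8FAE well 3. Igfbp5, an IGF-binding protein, averaged 5.78 ± 3.94 CPM in bC8FAE wells and 127 ± 39.8 CPM in MEF wells, a log2 fold change of -4.65 ± 0.32 and -4.80 ± 0.32 without the low wells. H19, an imprinted non-coding RNA, had 565, 1029.6, 567, 2003 and 849 CPM in bC8FAE wells 1 to 5, against 5987, 4957, 4461 and 4738 CPM in MEF wells 1 to 4. Well 4 was the highest bC8FAE well, and all bC8FAE wells lay below the MEF wells, with a log2 fold change of -2.52 ± 0.17 (edgeR adjusted p = 7.35e-19), and -2.85 ± 0.12 without the low wells. Mest, an imprinted gene of mesoderm, averaged 32.4 ± 13.5 CPM in bC8FAE wells and 227 ± 52.8 CPM in MEF wells, a log2 fold change of -3.04 ± 0.26 and -3.18 ± 0.25 without the low wells. Peg3, an imprinted zinc finger gene, averaged 11.3 ± 9.80 CPM in bC8FAE wells and 75.3 ± 18.7 CPM in MEF wells, a log2 fold change of -3.06 ± 0.38 and -3.19 ± 0.40 without the low wells. The 3 risers were Htra1, Irs1, an insulin receptor substrate (0.99 ± 0.30; 0.72 ± 0.28 without the low wells), and Nnat, an imprinted proteolipid (0.87 ± 0.18; 0.97 ± 0.19 without the low wells). Igfbp3 (0.22 ± 0.18) and Igf2r (0.08 ± 0.46) were not called.

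Genes of sterol synthesis and uptake were mostly lower. In their list 1 rose and 16 fell among 24 tested, with a median of -1.21; 1 rose and 14 fell among 23 tested without the low wells. Mvk, mevalonate kinase, had 49.4, 63.0, 55.7, 58.7 and 81.9 CPM in bC8FAE wells 1 to 5, against 139, 196, 144 and 186 CPM in MEF wells 1 to 4. Mvk in every bC8FAE well was below that in every MEF well, with a log2 fold change of -1.50 ± 0.19 (edgeR adjusted p = 1.71e-09), and -1.52 ± 0.19 without the low wells. Fdft1, squalene synthase, averaged 49.0 ± 19.9 CPM in bC8FAE wells and 117 ± 11.1 CPM in MEF wells, a log2 fold change of -1.45 ± 0.20 and -1.52 ± 0.21 without the low wells; it overlaps Ctsb. Npc2, which carries cholesterol out of lysosomes, was the only riser. Npc2 had 1465, 1381, 1439.5, 1333 and 1412 CPM in bC8FAE wells 1 to 5, against 870.0, 853, 1117 and 939.6 CPM in MEF wells 1 to 4. Npc2 separated the media without overlap, with a log2 fold change of 0.53 ± 0.10 (edgeR adjusted p = 3.9e-05), and 0.63 ± 0.09 without the low wells. Sqle, squalene epoxidase (-0.45 ± 0.20), and the regulator Srebf2 (-0.07 ± 0.19) were not called.

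In fatty acid handling 5 rose and 10 fell among 35 tested, unchanged without the low wells. Plin2, which coats lipid droplets, had 546, 660.3, 577, 595 and 576 CPM in bC8FAE wells 1 to 5, against 206, 153, 123 and 161 CPM in MEF wells 1 to 4. The bC8FAE wells were far above the MEF wells and close together, with a log2 fold change of 1.74 ± 0.13 (edgeR adjusted p = 3.92e-17), and 1.69 ± 0.12 without the low wells. Lpl, lipoprotein lipase, had 1.98, 4.34, 2.53, 16.8 and 0 CPM in bC8FAE wells 1 to 5, against 87.2, 96.6, 187 and 82.5 CPM in MEF wells 1 to 4. Lpl lay below the MEF wells in all 5 bC8FAE wells, while MEF well 3 was the highest of its group, with a log2 fold change of -4.93 ± 0.42 (edgeR adjusted p = 6.52e-15), and -5.19 ± 0.45 without the low wells. Fads3, a desaturase family member, averaged 33.1 ± 10.6 CPM in bC8FAE wells and 151 ± 7.92 CPM in MEF wells, a log2 fold change of -2.28 ± 0.22 and -2.31 ± 0.23 without the low wells. Scd2, a stearoyl-CoA desaturase, was not called (0.05 ± 0.11). Among lysosome and autophagy genes 4 rose and 12 fell among 37 tested, 5 and 12 among 37 without the low wells. Ctsl, cathepsin L, had 2582, 2617, 2813, 3655 and 3213 CPM in bC8FAE wells 1 to 5, against 1089, 1344, 1989 and 1022 CPM in MEF wells 1 to 4. Ctsl did not overlap between the media, with a log2 fold change of 1.08 ± 0.12 (edgeR adjusted p = 4.51e-11), and 1.23 ± 0.09 without the low wells; it overlaps Gm47123 and Gm49230. Map1lc3a, an LC3 protein of autophagosomes, averaged 239.7 ± 38.7 CPM in bC8FAE wells and 522 ± 140.5 CPM in MEF wells, a log2 fold change of -1.17 ± 0.14 and -1.21 ± 0.12 without the low wells. Gabarapl1, of the same family, averaged 31.0 ± 7.83 CPM in bC8FAE wells and 85.9 ± 27.4 CPM in MEF wells, a log2 fold change of -1.61 ± 0.23 and -1.69 ± 0.24 without the low wells. Lamp1, a lysosomal membrane protein, was not called (-0.16 ± 0.10).

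Glycolysis genes split, with 4 members higher and 6 lower among 21 tested; 6 rose and 7 fell among 21 tested without the low wells. Pfkp, the platelet form of phosphofructokinase, had 41.5, 50.0, 60.7, 33.5 and 38.4 CPM in bC8FAE wells 1 to 5, against 6.71, 8.53, 7.21 and 14.3 CPM in MEF wells 1 to 4. Pfkp in every bC8FAE well was above that in every MEF well, with a log2 fold change of 2.27 ± 0.40 (edgeR adjusted p = 4.59e-06), and 2.27 ± 0.41 without the low wells. Slc2a1, the glucose transporter GLUT1, averaged 45.8 ± 14.7 CPM in bC8FAE wells and 95.8 ± 22.2 CPM in MEF wells, a log2 fold change of -1.14 ± 0.20 and -1.11 ± 0.23 without the low wells. Slc16a3, the lactate exporter MCT4, averaged 21.0 ± 6.88 CPM in bC8FAE wells and 84.9 ± 65.2 CPM in MEF wells, a log2 fold change of -1.81 ± 0.32 and -1.45 ± 0.32 without the low wells. The main enzymes Ldha (-0.22 ± 0.11) and Pkm (0.21 ± 0.12) were not called, although Pkm was called higher without the low wells (0.24 ± 0.09). Among nuclear-encoded respiratory chain genes 13 rose and 2 fell among 70 tested, with a median of 0.17, and 20 rose and 2 fell among 70 tested without the low wells. Cox5a, a cytochrome oxidase subunit, averaged 506 ± 146 CPM in bC8FAE wells and 286 ± 86.8 CPM in MEF wells, a log2 fold change of 0.76 ± 0.16 and 0.75 ± 0.11 without the low wells, with overlapping wells. Uqcr10, a complex III subunit, averaged 1071 ± 290.1 CPM in bC8FAE wells and 612 ± 113 CPM in MEF wells, a log2 fold change of 0.76 ± 0.15 and 0.78 ± 0.11 without the low wells. Its level in bC8FAE well 4 lay within the MEF range. Among the 6 mitochondrially encoded genes tested 1 rose and 0 fell, and 3 rose and 0 fell among 6 without the low wells. The riser mt-Nd1 was at 0.71 ± 0.14, with overlapping wells, and at 0.94 ± 0.09 without the low wells. Both mt-Nd4 and mt-Cytb were not called but were called higher without the low wells (0.35 ± 0.10 and 0.25 ± 0.08). The low wells had the highest mitochondrial shares, and the part of those shares in this was not tested.

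Genes of replication and mitosis were mostly not called, unlike those of cell cycle inhibitors and p53 targets. Among replication and S phase genes 9 rose and 2 fell among 38 tested, 8 and 2 among 38 without the low wells, near the share called over all genes. Cdt1, the replication licensing factor, had 57.3, 69.5, 43.0, 92.2 and 40.9 CPM in bC8FAE wells 1 to 5, against 11.2, 5.68, 36.0 and 14.3 CPM in MEF wells 1 to 4. Cdt1 separated the media without overlap, while MEF well 3 was the highest of its group, with a log2 fold change of 2.01 ± 0.33 (edgeR adjusted p = 1.09e-06), and 2.31 ± 0.37 without the low wells. E2f1, the factor that drives S phase entry, had 196, 124, 149, 176 and 169 CPM in bC8FAE wells 1 to 5, against 62.6, 73.9, 36.0 and 61.0 CPM in MEF wells 1 to 4. E2f1 lay above the MEF wells in all 5 bC8FAE wells, with a log2 fold change of 1.31 ± 0.19 (edgeR adjusted p = 1.11e-07), and 1.22 ± 0.20 without the low wells. Chaf1b, a histone chaperone subunit, averaged 68.8 ± 10.2 CPM in bC8FAE wells and 28.6 ± 13.0 CPM in MEF wells, a log2 fold change of 1.20 ± 0.25 and 1.16 ± 0.27 without the low wells. Mcm7 (0.22 ± 0.16) and Rrm1 (0.11 ± 0.15) were not called. In the mitosis list 3 rose and 3 fell among 33 tested, and 2 rose and 7 fell among 33 tested without the low wells. Prc1, which bundles microtubules of the central spindle, averaged 25.6 ± 7.69 CPM in bC8FAE wells and 57.1 ± 12.8 CPM in MEF wells, a log2 fold change of -1.27 ± 0.28 and -1.31 ± 0.30 without the low wells; it overlaps Rccd1. Ube2c (0.07 ± 0.17) and Bub3 (0.06 ± 0.17) were not called. Of cell cycle inhibitors and p53 targets 8 rose, 6 fell and 13 were not called among 27 tested, the same without the low wells. Cdkn1a, the CDK inhibitor p21, had 1759, 1551, 1607, 1744 and 2349 CPM in bC8FAE wells 1 to 5, against 861, 711, 1146 and 1079.5 CPM in MEF wells 1 to 4. Cdkn1a did not overlap between the media, with a log2 fold change of 0.88 ± 0.12 (edgeR adjusted p = 4.87e-08), and 0.99 ± 0.10 without the low wells. Cdkn1c, the imprinted CDK inhibitor p57, had 31.6, 149.9, 37.9, 33.5 and 33.3 CPM in bC8FAE wells 1 to 5, against 259, 219, 129.7 and 165 CPM in MEF wells 1 to 4. Well 2 stood apart from the other bC8FAE wells and overlapped the MEF wells, with a log2 fold change of -1.78 ± 0.25 (edgeR adjusted p = 4.61e-08), and -1.82 ± 0.23 without the low wells and -2.66 without bC8FAE well 2. Gadd45a, a stress-induced p53 target, averaged 53.1 ± 14.8 CPM in bC8FAE wells and 12 ± 6.31 CPM in MEF wells, a log2 fold change of 2.10 ± 0.36 and 2.14 ± 0.39 without the low wells; it overlaps E230016M11Rik.

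Ribosomal and proteasomal genes were mostly not called. Of cytosolic ribosomal proteins 1 rose and 2 fell among 74 tested, with a median of -0.03, and 6 rose and 6 fell among 74 tested without the low wells. Rplp0 was 1 of those called lower, at -0.28 ± 0.11 (edgeR adjusted p = 0.0498), and -0.29 ± 0.07 without the low wells, with overlapping wells. Its call was lost without MEF well 1, 2 or 4 or bC8FAE well 1, 2, 3 or 4, with library totals, with no filter and when only the wells of these media were fitted. Ribosome biogenesis genes and snoRNA hosts had 10 risers among 27 tested, the same without the low wells. Polr1a, the catalytic subunit of RNA polymerase I, had 144, 143, 121, 184 and 143 CPM in bC8FAE wells 1 to 5, against 33.5, 59.7, 79.3 and 68.1 CPM in MEF wells 1 to 4. Polr1a in every bC8FAE well was above that in every MEF well, with a log2 fold change of 1.31 ± 0.19 (edgeR adjusted p = 1.16e-07), and 1.37 ± 0.21 without the low wells; it overlaps Gm26628. Rrp9, a U3 snoRNP protein, averaged 99.5 ± 40.2 CPM in bC8FAE wells and 45.6 ± 9.95 CPM in MEF wells, a log2 fold change of 1.21 ± 0.25 and 1.27 ± 0.24 without the low wells. Gas5, a snoRNA host that accumulates when translation is blocked, was the only member to fall. Gas5 had 239, 230.2, 189.7, 377 and 235 CPM in bC8FAE wells 1 to 5, against 331, 358, 447 and 373 CPM in MEF wells 1 to 4. Gas5 overlapped between the media, with a log2 fold change of -0.68 ± 0.13 (edgeR adjusted p = 1.97e-05), and -0.70 ± 0.13 without the low wells. Npm1 (0.14 ± 0.18) and Ncl (-0.10 ± 0.16), nucleolar proteins, were not called. In the proteasome 9 rose and 1 fell among 34 tested, the same without the low wells, with a median of 0.21. Psmd2, a base subunit of the cap, averaged 237 ± 66.4 CPM in bC8FAE wells and 136 ± 41.8 CPM in MEF wells, a log2 fold change of 0.72 ± 0.16 and 0.75 ± 0.16 without the low wells, with overlapping wells.

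Mediator genes were listed because the title of the series names Cdk8. Among 22 tested 1 rose (Med10, 0.39 ± 0.14; 0.42 ± 0.15 without the low wells) and 2 fell (Med11, -0.98 ± 0.38; -1.03 ± 0.41 without the low wells, and Cdk19), 2 and 2 among 22 without the low wells. Cdk19, the paralog of Cdk8, had 11.9, 8.69, 7.59, 8.38 and 7.67 CPM in bC8FAE wells 1 to 5, against 20.1, 25.6, 14.4 and 25.1 CPM in MEF wells 1 to 4. The wells did not overlap, with a log2 fold change of -1.32 ± 0.47 (edgeR adjusted p = 0.0257), and -1.38 ± 0.50 without the low wells. Cdk8 itself was below the filter. Cdk8 had 9.88, 2.17, 7.59, 16.8 and 7.67 CPM in bC8FAE wells 1 to 5, against 13.4, 8.53, 21.6 and 17.9 CPM in MEF wells 1 to 4, with overlapping wells and no test. Its partner cyclin C, Ccnc, had 8 counts over the bC8FAE wells and 1 over the MEF wells and was not tested either. Med10 was not called without MEF well 2, MEF well 4 or bC8FAE well 2 or when only the wells of these media were fitted. Med11 was not called with DESeq2, library totals or no filter or without any 1 of MEF wells 1, 2 and 4 and bC8FAE wells 2, 3 and 5.

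Chromatin genes of the Polycomb, DOT1L and histone methylation list had 5 members that rose and 0 that fell among 15 tested, the same without the low wells. Jarid2, a cofactor that recruits a Polycomb repressive complex, had 90.9, 69.5, 78.4, 184 and 105 CPM in bC8FAE wells 1 to 5, against 11.2, 2.84, 14.4 and 3.59 CPM in MEF wells 1 to 4 (chromosome 13, 44729474-44921643). Well 4 was the highest bC8FAE well, all were above the MEF wells, and the test gave a log2 fold change of 3.54 ± 0.35 (edgeR adjusted p = 1.91e-12), and 3.62 ± 0.38 without the low wells. Mllt3, a partner of DOT1L, had 51.4, 47.8, 48.1, 101 and 92.1 CPM in bC8FAE wells 1 to 5, against 8.95, 17.1, 14.4 and 10.8 CPM in MEF wells 1 to 4. Mllt3 lay above the MEF wells in all 5 bC8FAE wells, with a log2 fold change of 2.24 ± 0.35 (edgeR adjusted p = 3.51e-07), and 2.21 ± 0.37 without the low wells. Suv39h1, a histone H3 lysine methyltransferase of heterochromatin, averaged 123 ± 16.9 CPM in bC8FAE wells and 47.9 ± 16.3 CPM in MEF wells, a log2 fold change of 1.36 ± 0.21 and 1.36 ± 0.23 without the low wells; it overlaps Gm14820. Cbx2, a Polycomb protein, had a log2 fold change of 2.33 ± 0.64 and 2.08 ± 0.66 without the low wells; without MEF well 1, with 1 MEF count left, it had a ratio of summed counts of 14.0 (exact 95% interval 2.34 to 568). Ezh2, the Polycomb methyltransferase, had 51.4, 50.0, 43.0, 33.5 and 92.1 CPM in bC8FAE wells 1 to 5, against 33.5, 28.4, 36.0 and 21.5 CPM in MEF wells 1 to 4. The wells overlapped, with a log2 fold change of 0.87 ± 0.27 (edgeR adjusted p = 0.0091), and 0.96 ± 0.28 without the low wells, and it was not called without bC8FAE well 5 (0.60). Dot1l was not called, at 1.02 ± 0.42 (edgeR adjusted p = 0.056).

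Stress genes split by pathway. Of heat shock genes and chaperones 8 rose and 1 fell among 23 tested, and 6 rose and 1 fell among 22 tested without the low wells. Cryab, alpha B-crystallin, a small heat shock protein, had 472, 441, 435, 344 and 573 CPM in bC8FAE wells 1 to 5, against 145, 119, 123 and 219 CPM in MEF wells 1 to 4. Cryab did not overlap between the media, with a log2 fold change of 1.53 ± 0.17 (edgeR adjusted p = 6.46e-11), and 1.55 ± 0.15 without the low wells; it overlaps Hspb2. Cct2, a subunit of the cytosolic chaperonin, averaged 592 ± 86.5 CPM in bC8FAE wells and 344 ± 97.9 CPM in MEF wells, a log2 fold change of 0.73 ± 0.12 and 0.81 ± 0.11 without the low wells. Hspb1, the small heat shock protein HSP27, averaged 24.3 ± 10.9 CPM in bC8FAE wells and 54.8 ± 22 CPM in MEF wells, a log2 fold change of -1.41 ± 0.28 and -1.53 ± 0.28 without the low wells, with overlapping wells. Of genes of the unfolded protein response 0 rose and 11 fell among 26 tested, unchanged in counts without the low wells, with a median of -0.49. Hsp90b1, an ER chaperone, averaged 88.5 ± 68.3 CPM in bC8FAE wells and 136 ± 20.5 CPM in MEF wells, a log2 fold change of -0.96 ± 0.21 and -1.15 ± 0.20 without the low wells, with overlapping wells; it overlaps other annotated RNAs. Xbp1, a transcription factor of this response, averaged 96.1 ± 14.8 CPM in bC8FAE wells and 140.2 ± 19.5 CPM in MEF wells, a log2 fold change of -0.60 ± 0.16 and -0.60 ± 0.17 without the low wells. In the integrated stress response and amino acid list 4 rose and 8 fell among 31 tested, the same without the low wells. Slc7a11, the cystine importer, had 53.4, 30.4, 45.5, 117 and 48.6 CPM in bC8FAE wells 1 to 5, against 2.24, 5.68, 14.4 and 3.59 CPM in MEF wells 1 to 4. Well 4 was the highest bC8FAE well, and the test gave a log2 fold change of 3.20 ± 0.46 (edgeR adjusted p = 8e-08), and 3.44 ± 0.51 without the low wells. Slc3a2, its heavy-chain partner, averaged 208 ± 64.1 CPM in bC8FAE wells and 98.2 ± 13.7 CPM in MEF wells, a log2 fold change of 1.11 ± 0.17 and 1.20 ± 0.16 without the low wells. Cebpb, a bZIP factor, averaged 80.9 ± 24.3 CPM in bC8FAE wells and 229.8 ± 89.5 CPM in MEF wells, a log2 fold change of -1.56 ± 0.19 and -1.46 ± 0.19 without the low wells; it overlaps Tmem189.

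Oxidative stress genes fell more often than they rose, with 6 members higher and 14 lower among 33 tested; 6 rose and 12 fell among 33 tested without the low wells. Sod3, the extracellular superoxide dismutase, had 1.98, 2.17, 2.53, 0 and 0 CPM in bC8FAE wells 1 to 5, against 93.9, 96.6, 360.4 and 169 CPM in MEF wells 1 to 4. MEF well 3 was the highest MEF well, and all were far above the bC8FAE wells; the ratio of summed counts was 0.0113 (exact 95% interval 0.0023 to 0.0335), and 0.015 without the low wells. Gpx3, a secreted glutathione peroxidase, had 136, 159, 132, 218 and 128 CPM in bC8FAE wells 1 to 5, against 617, 912, 569 and 581 CPM in MEF wells 1 to 4. Gpx3 in every bC8FAE well was below that in every MEF well, with a log2 fold change of -2.27 ± 0.14 (edgeR adjusted p = 5.22e-20), and -2.40 ± 0.14 without the low wells. Txnip, which inhibits thioredoxin, averaged 8.63 ± 1.57 CPM in bC8FAE wells and 89.9 ± 23.1 CPM in MEF wells, a log2 fold change of -3.44 ± 0.32 and -3.44 ± 0.34 without the low wells; it overlaps Gm15441. Cytosolic Sod1 (0.03 ± 0.12) and Prdx2 (-0.18 ± 0.10) were not called.

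Positional, epithelial and stem cell genes were mostly sparse. Of the Hox list 16 of 40 were tested, 2 rose and 5 fell, 2 and 6 among 15 without the low wells. Hoxc5 had 81.0, 76.0, 60.7, 92.2 and 107 CPM in bC8FAE wells 1 to 5, against 24.6, 22.7, 14.4 and 35.9 CPM in MEF wells 1 to 4. Hoxc5 separated the media without overlap, with a log2 fold change of 1.61 ± 0.28 (edgeR adjusted p = 3.24e-06), and 1.52 ± 0.29 without the low wells; it overlaps Hoxc10. Hoxa7 had 17.8, 23.9, 10.1, 0 and 7.67 CPM in bC8FAE wells 1 to 5, against 78.3, 48.3, 115 and 43.0 CPM in MEF wells 1 to 4. Hoxa7 lay below the MEF wells in all 5 bC8FAE wells, with a log2 fold change of -2.23 ± 0.33 (edgeR adjusted p = 1.31e-07), and -1.98 ± 0.33 without the low wells; it overlaps Hoxaas3. Of the epithelial list 6 of 39 were tested, 1 rose and 3 fell, the same without the low wells. Dsp, desmoplakin of desmosomes, had 59.3, 43.4, 40.5, 67.1 and 40.9 CPM in bC8FAE wells 1 to 5, against 2.24, 2.84, 0 and 0 CPM in MEF wells 1 to 4, a ratio of 29.2 (exact 95% interval 7.86 to 245), and 25.2 without the low wells. Jup, junction plakoglobin, averaged 51.0 ± 10.7 CPM in bC8FAE wells and 126 ± 17.9 CPM in MEF wells, a log2 fold change of -1.37 ± 0.20 and -1.38 ± 0.21 without the low wells. Of the extraembryonic endoderm and pluripotency list 8 of 35 were tested, 1 rose (Lama1, a laminin chain) and 5 fell, 1 and 5 among 7 without the low wells. Lama1 had 39 against 3 counts, a ratio of 8.45 (exact 95% interval 2.69 to 42.7), and 11.1 without the low wells and 5.34 without MEF well 1 and 18 without MEF well 2. Klf5, a Krüppel-like factor, averaged 15.7 ± 6.98 CPM in bC8FAE wells and 46.1 ± 6.94 CPM in MEF wells, a log2 fold change of -1.76 ± 0.30 and -1.88 ± 0.32 without the low wells. Dab2, an endocytic adaptor, averaged 13.5 ± 6.58 CPM in bC8FAE wells and 49.9 ± 16.3 CPM in MEF wells, a log2 fold change of -1.92 ± 0.37 and -1.88 ± 0.39 without the low wells; it overlaps Gm18888. In the solute carrier list 3 rose and 3 fell among 17 tested, the same without the low wells. Aqp1, a water channel, had 271, 211, 169.5, 444 and 317 CPM in bC8FAE wells 1 to 5, against 58.1, 131, 144 and 61.0 CPM in MEF wells 1 to 4. Aqp1 did not overlap between the media, with a log2 fold change of 1.46 ± 0.20 (edgeR adjusted p = 1.66e-08), and 1.49 ± 0.19 without the low wells. Slc20a1, a phosphate importer, averaged 113 ± 23.3 CPM in bC8FAE wells and 33.2 ± 9.46 CPM in MEF wells, a log2 fold change of 1.56 ± 0.21 and 1.46 ± 0.23 without the low wells; it overlaps 9830144P21Rik and Gm4430.

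Set beside bCFAE, the bC8FAE wells differed in 774 of 6985 genes (11.1%), 390 higher (5.58%) and 384 lower (5.5%). Without the low wells these counts were 486 (7.1%) and 446 (6.51%) of 6847 tested. This comparison shares the bC8FAE wells, and bCFAE against MEF shares the MEF wells, with the one above, so the values are only set side by side, with all wells. The contractile list had 0 members higher and 13 lower in bC8FAE than in bCFAE wells, and the actin and adhesion list 0 higher and 15 lower. In bCFAE against MEF wells the same lists had 2 higher and 8 lower, and 11 higher and 2 lower. The share of all genes called in bCFAE against MEF wells is not given here. Counts of genes called in that comparison, here and below, are therefore a description only. Acta2 had 1474, 1314 and 1259 CPM in the bCFAE wells, below the MEF wells and above the bC8FAE wells. Its log2 fold change was -3.43 ± 0.16 for bC8FAE against bCFAE (edgeR adjusted p = 5.16e-25) and -0.75 ± 0.14 for bCFAE against MEF. Fhl1 had -3.23 ± 0.25 and -0.36 ± 0.17 in these comparisons, and Prss23 -4.14 ± 0.37 and -1.28 ± 0.19. Axl was at -1.35 ± 0.14 and -0.24 ± 0.13.

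Several matrix and fibroblast genes were higher in bC8FAE than in bCFAE wells while lower than in MEF wells. Among fibroblast markers 7 were higher and 2 lower in bC8FAE than in bCFAE wells, and among collagen chains 9 higher and 1 lower. These counts include Thy1, Twist1 and Col18a1, which were higher than in MEF wells too. Dcn had 12, 15.1 and 18.6 CPM in the bCFAE wells, below every bC8FAE well, with a log2 fold change of 1.48 ± 0.45 for bC8FAE against bCFAE (edgeR adjusted p = 0.023) and -5.18 ± 0.30 for bCFAE against MEF. For Lum these were 1.90 ± 0.54 and -4.46 ± 0.40, for S100a4 1.49 ± 0.19 and -3.95 ± 0.20, and for Fbln1, not called against MEF, 1.95 ± 0.16 and -2.12 ± 0.17. The calls of Dcn and Lum against bCFAE were lost without bC8FAE well 5, and that of Dcn also without well 1. Aqp1 had 15.0, 28.9 and 23.3 CPM in the bCFAE wells, below both the bC8FAE and the MEF wells, and 3.55 ± 0.24 for bC8FAE against bCFAE. Genes higher in bC8FAE than in bCFAE wells included Jarid2, with 21.1, 17.9 and 30.2 CPM in the bCFAE wells and 2.10 ± 0.25, Msx1, with 33.1, 46.8 and 41.9 CPM and 2.92 ± 0.22, and Nrgn, with 93.3, 90.9 and 76.8 CPM and 2.35 ± 0.15. Stra6 was lower than in bCFAE wells, which had 654, 673 and 609 CPM, at -1.14 ± 0.12. In the complement list, 16 members were lower in bCFAE than in MEF wells, and C1qtnf6, a secreted protein related to C1q, was the only member higher, with none lower, in bC8FAE than in bCFAE wells.

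**Figure D5:**
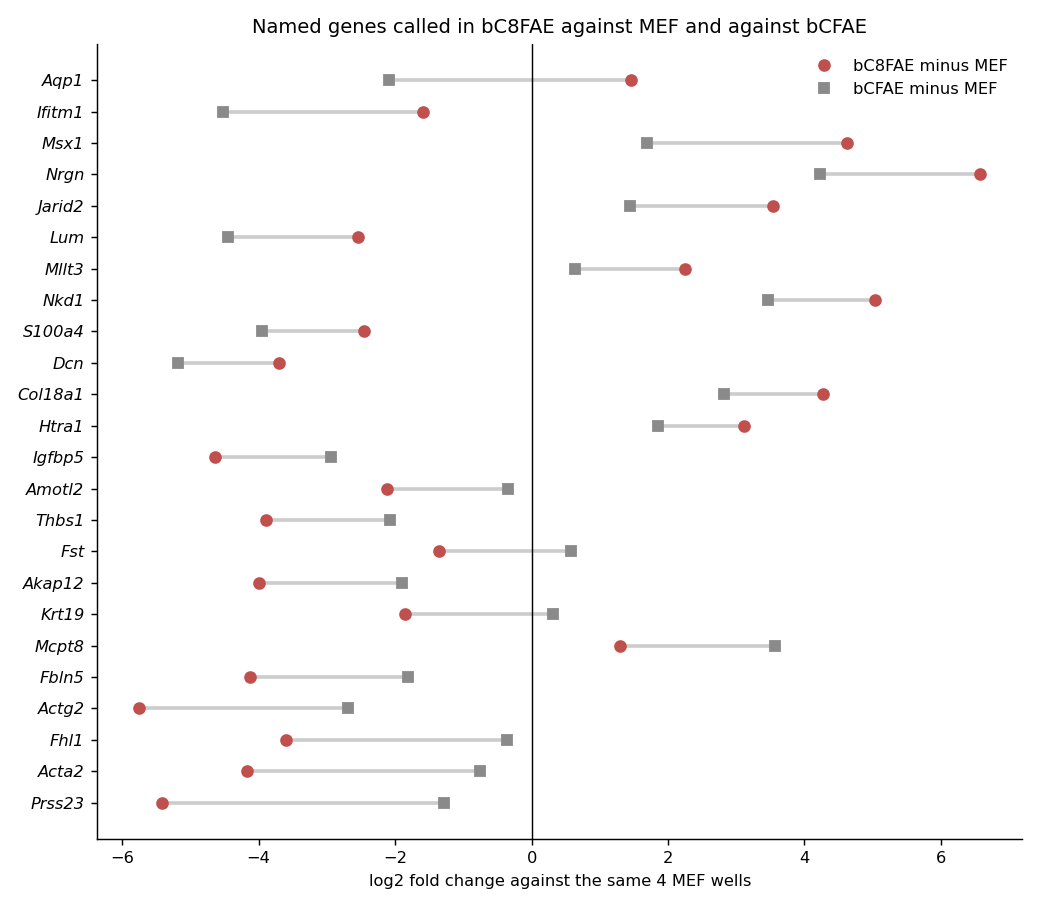
For 24 named genes called in bC8FAE wells against both MEF and bCFAE wells, points give the log2 fold change of bC8FAE over MEF and of bCFAE over MEF, both against the same 4 MEF wells. Acta2, Fhl1 and Prss23 lie far lower for bC8FAE than for bCFAE, Dcn, Lum and S100a4 lie lower for bCFAE, and Msx1, Jarid2 and Nrgn lie higher for bC8FAE.

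Of the 1061 genes higher in bC8FAE than in MEF wells, 722 were also called higher and 10 lower in bCFAE against MEF wells, and 329 were not called there. Of the 1180 lower genes, 909 were also called lower, 8 higher and 263 not called in bCFAE against MEF wells. Against bCFAE, 170 of the 1061 were higher and 76 lower, and 126 of the 1180 were lower and 74 higher. These counts share wells and are given as a description only.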

How the data were processed

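The authors deposited 1 table of raw counts per gene and well, in which 20471 gene names include 26 that read as dates. Per the submitters' processing notes, reads were aligned with STAR to mm10; no source used here gives the version of STAR, the tool that counted, its annotation and strand setting, or how molecular identifiers were treated. Of 274 columns, 32 were used and 242 could not be tied to the wells compared and were not used.

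Counts were fitted with edgeR 4.0.16 in R 4.3.3: the 30 wells of media on the plate entered 1 quasi-likelihood fit with TMM normalization, filterByExpr with a minimum count of 10 and Benjamini-Hochberg adjustment over 6985 genes, called at an adjusted p under 0.05. The fit shares 1 estimate of spread over these wells. CPM is the count over the well's raw total. Where a group held no count, 3 counts over its summed total gave a bound, and 1 to 3 counts got an exact 95% interval; both cover counting error only, and PCR copies are not independent molecules. Whether well numbers pair the wells of the media could not be told. Alternatives were DESeq2 1.42.0, DESeq2 size factors, library totals, no filter, a 2-fold threshold, only the wells compared, a replicate block and each well left out. The fit was tested on simulated data. Named genes are the 15 largest rises and falls with at least 10 CPM and no overlap of wells, up to 4 called and 2 uncalled members of each of 51 lists (1580 of 1600 symbols matched), and the Cdk8 group; some that the rule names are not reported here. Bmp4, C1qtnf6, Cck, Cdkn1a, Cnn2, Col1a2, Col3a1, Col6a1, Col6a2, Col6a3, Dkk3, Dot1l, Ezh2, Gas5, Gdf10, Grem1, H19, Id1, Id2, Irs1, Itgb1, Junb, Kremen1, Lef1, Ltbp4, Mest, Myl9, Nkd2, Nnat, Notum, Nov, Npc2, Pdlim7, Pxn, Sfrp1, Sfrp2, Sp5, Srf, Tagln, Tcf7, Tcf7l1, Tcf7l2, Thy1, Twist1, Vim and Wif1 were chosen after their values were seen. The wells, members and lists were chosen with earlier results of these data known. Positions are from GENCODE vM21 and promoters from RefSeq GRCm38.p6.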

Additional observations from a re-analysis of the deposited data

Results flagged for a closer look

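Of 480 groups of wells checked (each gene or well measure in the 5 bC8FAE or the 4 MEF wells), 88 had 1 well whose gap to its nearest neighbour took up more of the group's range than Dixon's 95% limit. Chance gives about 1 in 20 groups where values are continuous and normal. Some groups here had counts in only 1 well, and these pass the limit whatever that count is. Others rest on 1 count in bC8FAE well 4. The 88 groups therefore cannot be set against that share.

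bC8FAE well 4 stood above the other bC8FAE wells, in CPM, for Cxcl5 (8.38), Serpina3n (8.38), Steap4 (8.38), Vcl (151), Flna (1241), Col7a1 (168), Prss23 (25.1), Adamts5 (8.38), Prrx1 (519.7), Axin2 (83.8), Hmga2 (1081), Saa3 (8.38), Fdft1 (83.8), Lpl (16.8), mt-Nd1 (5683), mt-Cytb (6178), mt-Nd4 (3076), Hsp90b1 (209.6), Slc7a11 (117), Bmp2 (151), Igfbp3 (251), Ncl (519.7), Npm1 (226), Cd68 (50.3), Col1a1 (251), Cnn2 (889), Gas5 (377), Id2 (419), Irs1 (235), Itgb1 (821), Ltbp4 (92.2) and Tcf7 (92.2). bC8FAE well 4 stood below the other bC8FAE wells, in CPM, for Tmem179 (25.1), Pfn1 (662) and Cox5a (251). bC8FAE well 4 also stood apart in genes with a count (9429), percent of counts from mitochondrial genes (1.95), percent of counts from ribosomal protein genes (13.7) and percent of counts from the top 10 genes (7.51). MEF well 3 stood above the other MEF wells, in CPM, for Lcn2 (1651), Cxcl5 (3474), C3 (360.4), Ptx3 (129.7), Serpina3n (281), Hp (159), Steap4 (309.9), Lox (1449), Dcn (1211), Ltbp2 (173), Wnt7b (7.21), Etv4 (43.2), Saa3 (12188), Ifitm3 (2933), Ifitm1 (1362), Lpl (187), Fstl1 (2609), Lyz2 (274), Mcpt8 (43.2), Lum (512), Grem1 (605), Sfrp2 (115) and Thy1 (1643). MEF well 3 stood below the other MEF wells, in CPM, for Mgp (223). MEF well 3 also stood apart in percent of counts from mitochondrial genes (1.43) and percent of counts from ribosomal protein genes (14.6). These are the wells with the lowest totals, and results without them stand in the report.

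bC8FAE well 1 stood above the other bC8FAE wells, in CPM, for Ptn (1.98) and Cdk19 (11.9). bC8FAE well 2 stood above the other bC8FAE wells, in CPM, for Cdkn1c (149.9). bC8FAE well 3 stood above the other bC8FAE wells, in CPM, for Igf1 (2.53). bC8FAE well 5 stood above the other bC8FAE wells, in CPM, for Reg3g (2.56), Fbln1 (767), Htra1 (1405), Osr1 (10.2) and Cdkn1a (2349). bC8FAE well 5 stood below the other bC8FAE wells, in CPM, for Plod1 (43.5). MEF well 1 stood above the other MEF wells, in CPM, for Vcl (172), Bmp7 (2.24) and Ccnc (2.24). MEF well 2 stood above the other MEF wells, in CPM, for Nptx1 (2.84), Col26a1 (2.84), Axin2 (2.84), Gpx3 (912) and Esam (5.68). MEF well 2 stood below the other MEF wells, in CPM, for Cnn2 (685). MEF well 4 stood above the other MEF wells, in CPM, for Ccl12 (3.59), S100a4 (5010.3) and Lef1 (3.59). MEF well 4 stood below the other MEF wells, in CPM, for Itgb1 (262).

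The 2 wells named nocell, which no comparison used, held 4280 and 25308 counts, above what a count of 0 allows.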

How the results depend on the processing

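Asking for at least a 2-fold change as well as an adjusted p under 0.05 left 516 genes higher and 692 lower (1208 in all) in bC8FAE than in MEF wells, and 169 higher and 133 lower (302) in bC8FAE than in bCFAE wells. A fit of only the bC8FAE and MEF wells tested 5188 genes and called 672 higher and 823 lower; the cause of the smaller count, beyond the fewer genes tested, was not tested. Among the other alternatives the counts stayed within 1.5 times the main ones: 924 higher and 1102 lower with DESeq2, 1046 and 1199 with its size factors in edgeR, 1175 and 1206 of 16831 tested with no filter, and 1866 to 2302 in all when 1 well was left out. With library totals 1219 were higher and 1075 lower (53.1% of calls higher, against 47.3% with TMM), and the median log2 fold change was 0.071.

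Deviations of wells with the same number had correlations of 0.050, 0.058, -0.136 and -0.146. The low wells, bC8FAE well 4 and MEF well 3, had 0.234 with each other and negative values with all other wells. They carry different numbers, so these values cannot tell whether the well numbers pair the wells. With the well number as a replicate block, 1018 genes were higher and 1135 lower (2153 in all) against MEF, and 316 higher and 327 lower (643) against bCFAE; of the genes printed as called, Cdk19, Col6a3, Ezh2 and Med11 were not called against MEF with it, nor Dcn and Lum against bCFAE.

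The difference in genes with a count between bC8FAE and MEF wells ranged from -204.73 to 529.5 when 1 well was left out, with -2.0 without bC8FAE well 1. That in the share of ribosomal protein genes ranged from -1.1449 to 1.903 percentage points, with -0.0975 without bC8FAE well 2 and -0.15925 without bC8FAE well 3. Of 188 genes printed and called, 176 were called under every alternative in which they were tested and had an adjusted p (Cxcl5 and Lcn2 had none with DESeq2), and none changed direction. Of 1632 counts of list members, 121 moved by more than 1.5 times. The low wells' depth limits genes at few counts: a level of 1 count is 8.38 CPM in bC8FAE well 4.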
